A study of Rattus norvegicus with 33 samples.

Results

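Gene expression was compared between the prostates of adult rats exposed to estradiol benzoate (EB) as newborns and then to testosterone plus estradiol (T+E) as adults, and those of control rats, all on postnatal day (PND) 145. There were 3 arrays of each, taken by their group labels, 6 out of 33 in the series. All animals were male Sprague-Dawley rats. The EB+T+E animals received EB, a long-acting ester of estradiol, under the skin at 2.5 mg/kg on PND 1, 3 and 5. From PND 90, for 55 days, they carried 2 silastic implants filled with testosterone and 1 filled with estradiol. The controls received vehicle as pups and 3 empty implants as adults. Also used for comparison were 3 T+E arrays (vehicle, then the hormone implants) and 4 EB arrays (EB, then empty implants) of PND 145, and 3 EB+T+E and 3 control arrays of PND 100. Each array was hybridised with Cy3-labelled RNA of 1 sample. The labels give 3 to 4 litters a group and do not state whether a sample was 1 animal, so p-values cover only the spread from sample to sample, which may be technical.

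The rodent prostate is a set of paired glandular lobes whose luminal cells secrete proteins under the control of androgens, with basal cells beneath them and a smooth muscle and fibroblast stroma around the ducts. Estrogen given to newborn rodents alters prostate growth and its later response to hormones, and testosterone with estradiol in adult rats is a widely used means of producing inflammation, dysplasia and cancer of the prostate. Chronic inflammation of the gland brings in neutrophils, macrophages, T cells and B cells, and interferons made by such cells switch on antiviral and antigen presentation genes in their neighbours.

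Each gene is given as the log2 of its signal over the 75th percentile of all spots on the same array, called its level here. A level of 0 is the signal of that percentile, and levels of different genes cannot be set against each other because probes differ. Differences are log2 ratios, EB+T+E minus control, with ± for the standard error of limma's fit over all 33 arrays, and a gene is called where limma's p, Benjamini-Hochberg adjusted over 23156 genes, is under 0.05. Where no array of a group held a gene well above background, only a lower bound of the fold is given ("at least"), set against the lowest signal that was. On the 6 arrays 62.5% to 68.7% of spots were well above background, the 75th percentile lay at signals of 2360 to 3764, and 0 spots were saturated. The number of arrays limits the precision.

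The samples are labelled as whole prostate, and the series title names the dorsolateral prostate. Pbsn (probasin) and Msmb (beta-microseminoprotein), secretory proteins of the dorsolateral lobes, were far above the 75th percentile on all 6 arrays. Pbsn levels were 5.67, 5.94 and 5.71 in controls and 4.14, 4.48 and 4.62 after EB+T+E, and those of Msmb 5.86, 6.03 and 5.81 on control arrays against 4.75, 4.99 and 4.70 on EB+T+E arrays. Products of the ventral lobe set 1 array apart. Scgb1d4, a secretoglobin, had levels of 2.38, 5.01 and 5.74 on the control arrays and -3.39, -3.37 and 4.12 on the EB+T+E arrays, and Andpro, an androgen-regulated secretory protein, 1.18, 4.19 and 6.10 in controls and -4.44, -4.67 and 6.06 after EB+T+E. EB+T+E 3 thus lay within the control range for both, while EB+T+E 1 and 2 lay below it. A control array stood apart in the other direction. Tnp1, a transition protein that packs DNA in spermatids, had levels of -1.54, 4.22 and -3.90 on control arrays against -6.97, -5.28 and -9.26 on EB+T+E arrays, and Svs3a, a seminal vesicle secretory protein, -0.64, 3.85 and -0.64 on the control arrays and -0.77, -1.75 and -4.34 on the EB+T+E arrays. Control 2 carried the highest spermatid and seminal vesicle levels of the 6 arrays. Results that rest on EB+T+E 3 or control 2 are therefore given with and without that array.

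**Figure D1:**
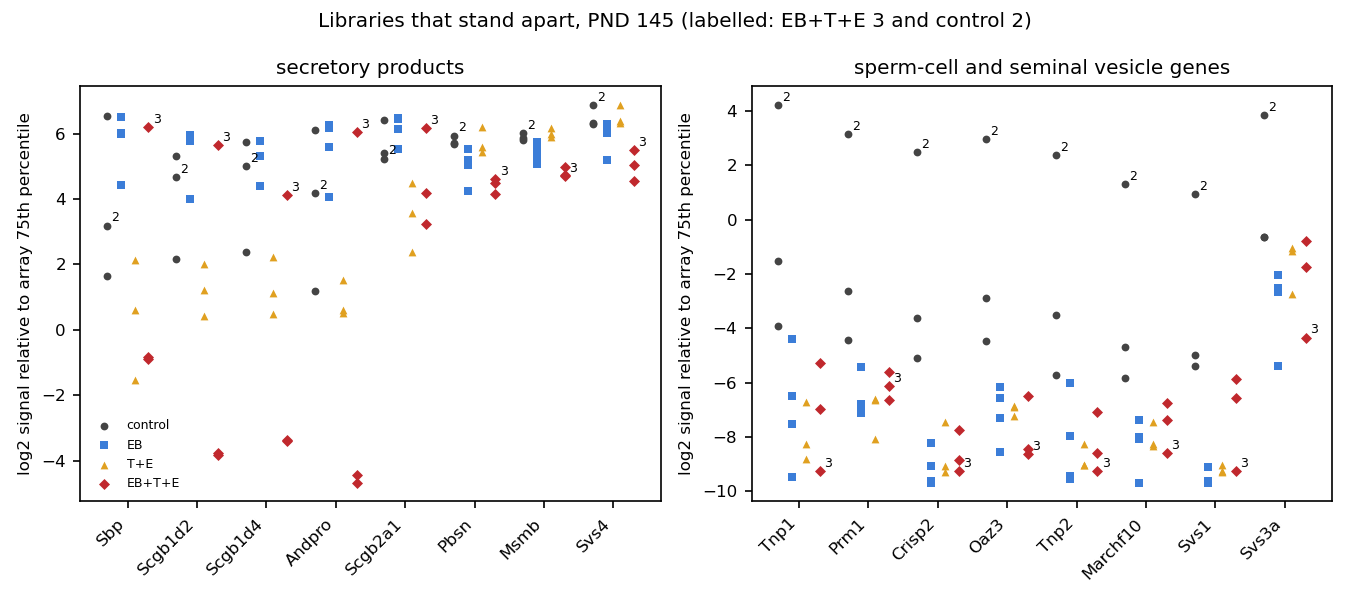
Levels (log2 signal relative to the 75th percentile of the array) of 8 secretory products at left and of 8 sperm-cell and seminal vesicle genes at right, 1 point per PND 145 array, with a symbol for each group, EB+T+E, T+E, EB and control; the numbers 3 and 2 mark EB+T+E 3 and control 2. EB+T+E 3 lies with the controls for Scgb1d4 and Andpro, and control 2 lies above the other controls for Tnp1 and Prm1.

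Of 23156 genes tested 8199 (35.4%) were called, 3415 (14.7%) higher and 4784 (20.7%) lower after EB+T+E. Leaving out EB+T+E 1 gave 5173 calls, and leaving out EB+T+E 3 gave 8489. The arrays of both groups did not overlap for 12077 of 23144 genes measured on all 6 arrays (52.2%), with EB+T+E higher for 4765 (20.6%) and lower for 7312 (31.6%). The median ratio over all genes was -0.24, and -0.13 after quantile scaling, which also evened the calls to 3483 higher and 3513 lower. With such a background, a list of genes is read against 14.7% higher and 20.7% lower. The 2 groups shared slide 3 (control 2 and EB+T+E 2) and slide 4 (control 3 and EB+T+E 3), and with slide as a block 7713 genes were called. Each slide had its own scan time. In whole tissue, fewer cells of a type and less RNA per cell cannot be told apart, and the same holds for more cells and more RNA.

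The genes furthest up, among genes well above background on at least 2 arrays of each group, were of several kinds. They included Jchain of antibody-producing cells, an inflammatory cytokine and chemokines, acute-phase and mucosal proteins, and 3 Ly6 family genes. Jchain, which joins immunoglobulin A and M into polymers, had levels of -5.68, -4.77 and -5.44 in controls and 4.50, 4.62 and 2.90 after EB+T+E (log2 ratio 9.30 ± 0.90, adjusted p 1.9e-07). Ccl19, a chemokine that draws T cells and dendritic cells into lymphoid tissue, had levels of -5.51, -4.85 and -6.23 on control arrays against 3.51, 2.86 and 0.36 on EB+T+E arrays (log2 ratio 7.77 ± 1.08, adjusted p 1.03e-05). For Ccl3, a chemokine of activated macrophages, the levels were -6.08, -5.94 and -6.53 on the control arrays and 1.38, 2.33 and 1.30 on the EB+T+E arrays (log2 ratio 7.86 ± 1.12, adjusted p 1.39e-05). Il1b, the inflammatory cytokine interleukin-1 beta, was at -5.17, -4.81 and -5.25 in controls and 1.75, 2.34 and 2.57 after EB+T+E (log2 ratio 7.30 ± 0.99, adjusted p 8.43e-06). The choice of the 12 highest required all 3 EB+T+E arrays to lie above all controls. EB+T+E 3 was lowest of the 3 for Jchain and Ccl19. Complement C3, the hub of the complement cascade, was at -3.09, -3.34 and -3.93 on control arrays against 3.81, 3.31 and 3.55 on EB+T+E arrays (log2 ratio 7.01 ± 1.02, adjusted p 1.71e-05). Msln (mesothelin), a surface protein of mesothelial cells, was at -6.64, -6.24 and -3.54 on the control arrays and 2.20, 2.86 and 0.50 on the EB+T+E arrays (log2 ratio 7.33 ± 1.44, adjusted p 0.000411). The other genes of the 12 highest were 3 Ly6 family genes, Ly6al (8.88 ± 1.56, adjusted p 0.000134), Ly6i (8.06 ± 1.30, adjusted p 5.43e-05) and Ly6cl1 (7.76 ± 1.22, adjusted p 3.92e-05), whose probes may also bind related transcripts. With them were Saal1 (7.44 ± 1.52, adjusted p 0.000614), Scimp (7.0 ± 0.85, adjusted p 2.66e-06), an adaptor of antigen-presenting cells, and Gcnt3 (6.92 ± 1.45, adjusted p 0.000792), an enzyme of mucin glycan synthesis.

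Clca1, a secreted protein of mucus-producing cells, gave the largest bound. It had levels of -8.43, -8.97 and -8.14 in controls and 4.64, 5.47 and 4.52 after EB+T+E (at least 4200-fold higher, adjusted p 2.66e-06), and on the T+E arrays 1.58, 5.68 and 2.57. The neutrophil chemokines Cxcl2 (at least 851-fold higher, adjusted p 0.000132) and Cxcl3 (at least 245-fold higher, adjusted p 0.000283) followed, with Kng2l1, a kininogen-like gene (at least 245-fold higher, adjusted p 0.00472). None of these was well above background on a control array.

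The genes furthest down included spermatid genes, transporters and epithelial enzymes. Tnp1 had the lowest ratio of the 12 (log2 ratio -6.77 ± 1.51, adjusted p 0.0014), and without control 2 it was -4.45. Prm1, a protamine, was high on the same array, with levels of -2.64, 3.14 and -4.41 on control arrays against -6.62, -5.61 and -6.12 on EB+T+E arrays (log2 ratio -4.81 ± 1.23, adjusted p 0.00413). Without control 2 its ratio was -2.59. The call of Prm1 was lost without control 2 (adjusted p 0.0588). Marchf10, a ubiquitin ligase of spermatids, had a ratio of -4.50 ± 1.13 (adjusted p 0.00371), and of -2.31 without control 2. Mfsd2a, a transporter of omega-3 fatty acids, had levels of 0.43, -0.13 and -0.53 on the control arrays and -5.33, -2.38 and -8.69 on the EB+T+E arrays (log2 ratio -5.39 ± 1.17, adjusted p 0.00109). Corin, a serine protease, was at -0.42, -1.58 and -2.59 in controls and -6.92, -4.99 and -6.76 after EB+T+E (log2 ratio -4.70 ± 1.02, adjusted p 0.00105). Kif6, a kinesin, was at 0.36, 0.67 and 0.28 on control arrays against -5.10, -4.39 and -4.54 on EB+T+E arrays (log2 ratio -5.11 ± 0.78, adjusted p 2.96e-05). For Mt3, a metallothionein that binds zinc, the levels were 3.79, 5.13 and 4.78 on the control arrays and 0.46, 0.81 and -1.21 on the EB+T+E arrays (log2 ratio -4.55 ± 0.97, adjusted p 0.000886). Gpc5, a heparan sulfate proteoglycan, was at -1.61, -2.89 and -2.52 in controls and -6.66, -6.74 and -7.90 after EB+T+E (log2 ratio -4.76 ± 0.93, adjusted p 0.000395). The choice of the 12 required each EB+T+E array to lie below all controls. It also required at least 2 arrays of each group well above background. EB+T+E 2 was nearest to the controls for Mfsd2a and Corin. The remaining 4 were Havcr1 (-5.19 ± 1.49, adjusted p 0.00916), Ugt2b34l1 (-5.04 ± 0.74, adjusted p 1.77e-05), Gprc6a (-4.55 ± 1.25, adjusted p 0.00704) and Smpx (-4.54 ± 1.61, adjusted p 0.0306). The call of Havcr1 was lost without EB+T+E 3 (adjusted p 0.0503), that of Gprc6a without control 3 (0.0518), and that of Smpx without control 1, control 2, EB+T+E 1, EB+T+E 2 or EB+T+E 3 (0.0533 to 0.122). Lower bounds were largest for Crisp2 (at least 41-fold lower, adjusted p 0.0012), Tcp10b (at least 25.6-fold lower, adjusted p 0.0159), Dnaaf1 (at least 21.1-fold lower, adjusted p 1.88e-05) and Dhrs2 (at least 19-fold lower, adjusted p 8.86e-05). Crisp2 and Tcp10b are sperm-cell genes, with fitted ratios of -4.26 and -3.34 without control 2, against -6.53 and -5.58 with it. The call of Tcp10b was lost without control 2 (adjusted p 0.157).

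**Figure D2:**
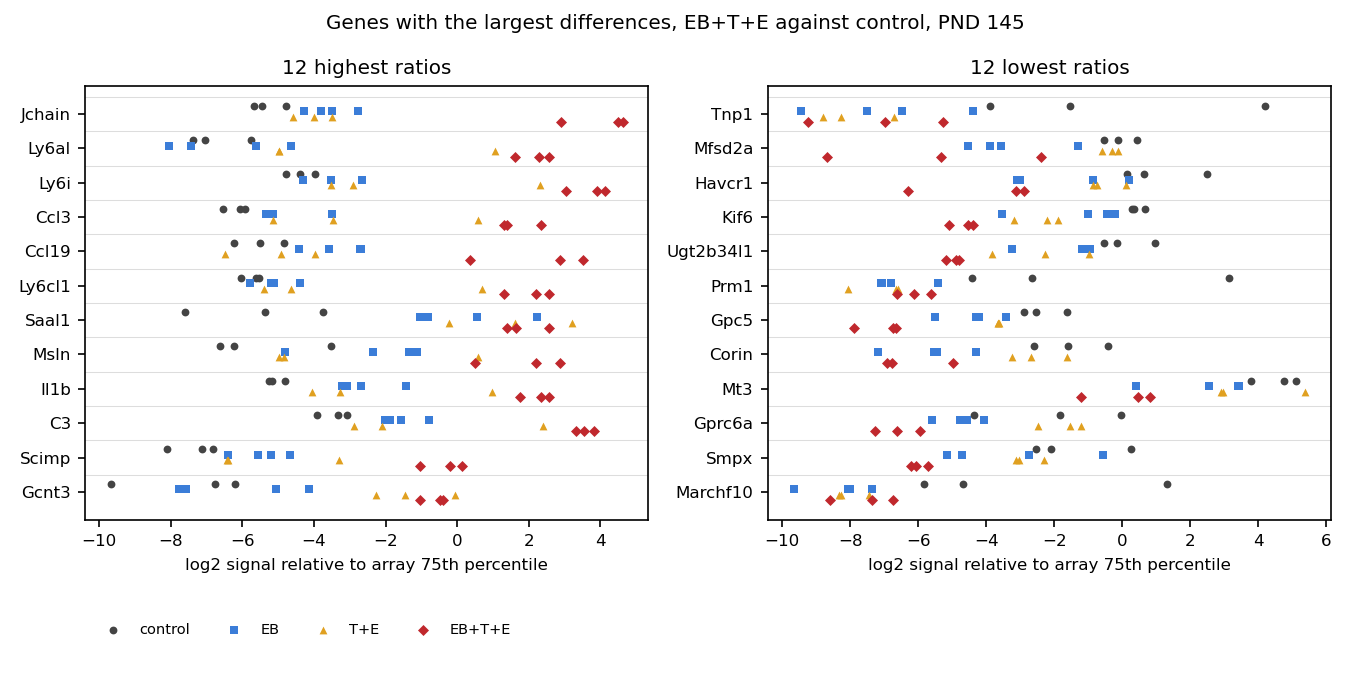
Levels (log2 signal relative to the 75th percentile of the array) of the 12 genes with the highest ratios at left and the 12 with the lowest at right among called genes with a symbol, no overlap and at least 2 arrays of each group well above background, 1 point per PND 145 array and 1 row per gene, with a symbol for each group, EB+T+E, T+E, EB and control. The EB+T+E and control points do not overlap in any row, which the choice of these genes required.

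Across 34 gene lists drawn up for this tissue and these treatments, the 8 highest medians (3.26 to 5.05) were those of neutrophils, B cells, interferon response, lymphoid chemokines, T cells, macrophages, complement and class II presentation. Nerve (2.41), fibroblast (2.10) and endothelial (1.64) genes came next. The lowest median was that of spermatid and testis genes (-3.95), and those of secretory epithelium, protein folding and sterol synthesis also lay below the median of all genes. Where normexp, another background correction, or quantile scaling moved a list's count, or a median printed below, by over 1.5 times, that value is given beside it. Some medians shown only in figures moved as much. Under normexp those of estrogen-responsive genes went from 0.63 to 0.23 and of hepatocyte growth factor genes from 0.99 to 0.29. Developmental signals went from 0.43 to 0.04 there, and mast cells and eosinophils from 1.11 to 0.56. Steroid enzymes (0.32 to -0.1) and adipocytes (0.53 to -0.16) turned sign. Quantile scaling moved the dorsolateral median from -1.22 to -0.69. The lists and the genes named from them were chosen with earlier results of these data known, so their counts are descriptions and no list was tested.

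**Figure D3:**
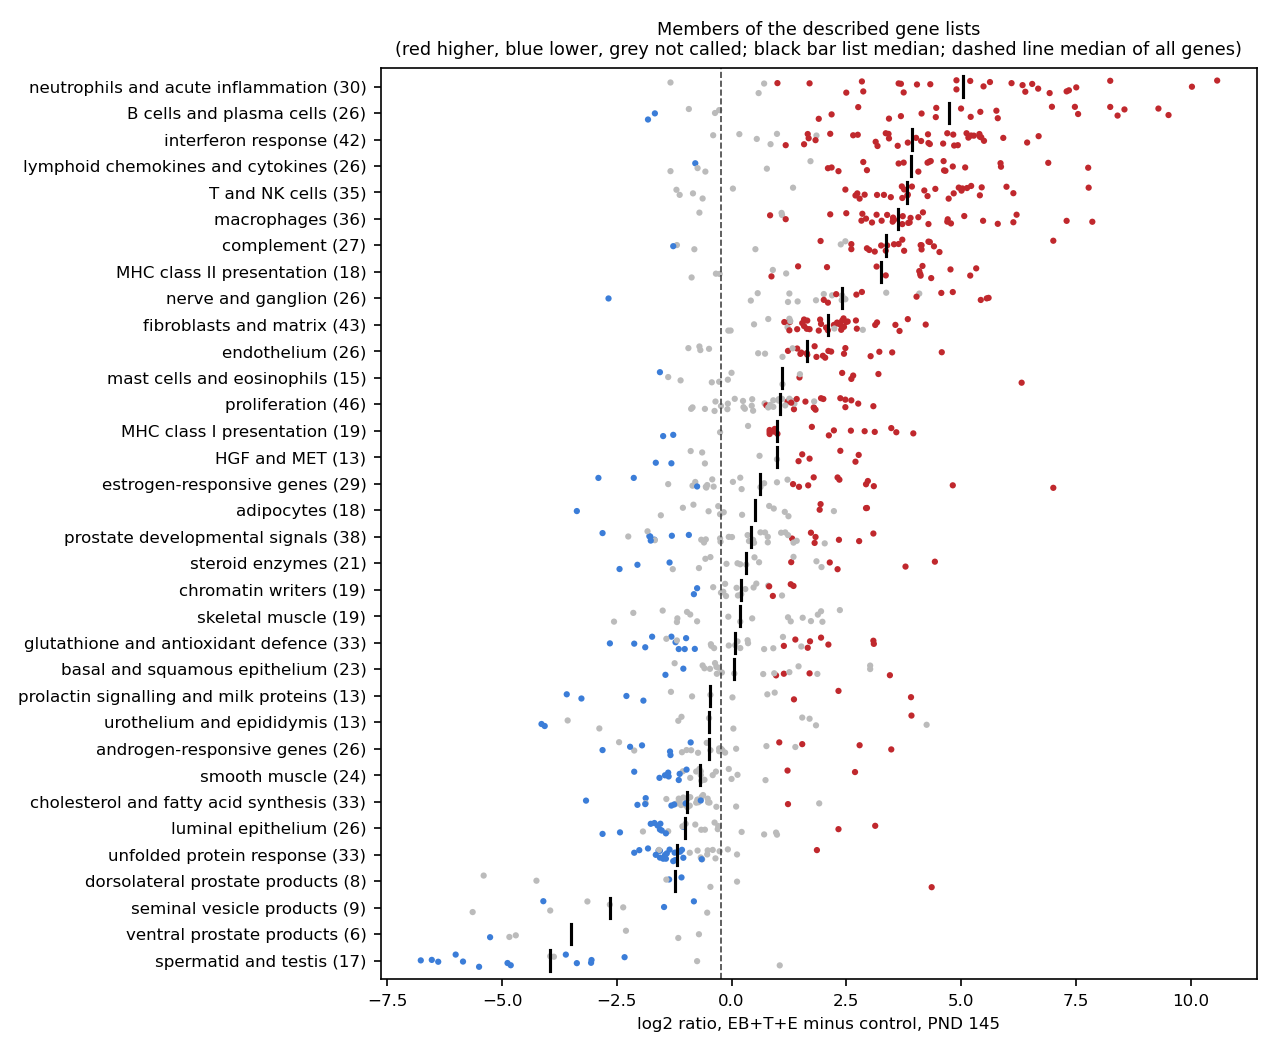
Log2 ratio (EB+T+E minus control, PND 145) of each tested member of the 34 lists, 1 point per gene and 1 row per list with the number of tested members in parentheses; red points were called higher, blue lower and grey not called, black bars are list medians and the dashed line is the median of all genes (-0.24). Nearly all points of the neutrophil, macrophage, T cell and interferon rows are red, and most called points of the unfolded protein response and luminal rows are blue.

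Genes of neutrophils and acute inflammation rose. Of 30 tested members 27 were called higher (median 5.05, or 3.52 with the 13 members not above background in controls set at their bounds). The neutrophil list had a median of 1.98 under normexp. All 7 chemokines and chemokine receptors of the list rose. Cxcl1, which recruits neutrophils through the receptor Cxcr2, had levels of -8.17, -9.02 and -8.71 on control arrays against -0.16, -0.14 and -0.83 on EB+T+E arrays (at least 110-fold higher, adjusted p 0.000648). All 6 granule proteins tested rose as well, such as S100a9, a subunit of calprotectin, at -8.80, -7.85 and -6.65 on the control arrays and -0.93, -0.40 and 0.55 on the EB+T+E arrays (log2 ratio 7.51 ± 1.53, adjusted p 0.000588). Lcn2 (lipocalin 2), which withholds iron from bacteria, was at -3.17, -3.66 and -4.16 in controls and 2.40, 3.17 and 2.64 after EB+T+E (log2 ratio 6.40 ± 1.48, adjusted p 0.00184). EB+T+E 3 was the highest of the EB+T+E arrays for S100a9 and the lowest for Cxcl1. Among the mediators 14 of 17 rose, including Il17a, the T cell cytokine that drives neutrophil recruitment (log2 ratio 6.34 ± 1.27, adjusted p 0.00052). Il1r2, a decoy receptor for interleukin-1, was among them (at least 74.9-fold higher, adjusted p 3.61e-05). So was Nos2, the inducible nitric oxide synthase (at least 4.81-fold higher, adjusted p 7.59e-05). Duox2, which makes hydrogen peroxide at epithelial surfaces, was at -9.36, -9.32 and -9.69 on control arrays against -4.39, -3.32 and -2.37 on EB+T+E arrays (at least 14-fold higher, adjusted p 0.000293). Il6 was 1 of the 3 members not called, with levels of -9.36, -9.28 and -5.17 on the control arrays and -8.85, -9.68 and -9.26 on the EB+T+E arrays (no fold, since its bound is under 1, adjusted p 0.216). The count of risers was 23 to 24 with each array left out in turn.

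Macrophage genes rose in 33 of 36 tested members, with a median of 3.63. All 13 phagocyte and lysosome genes rose. Siglec1, the sialic acid receptor of resident macrophages, had levels of -4.73, -4.90 and -5.20 in controls and 1.38, 1.83 and 0.40 after EB+T+E (log2 ratio 6.14 ± 0.69, adjusted p 1.19e-06). Adgre1, which encodes the F4/80 antigen, was at -4.00, -4.79 and -5.13 on control arrays against 0.51, 0.45 and -0.75 on EB+T+E arrays (log2 ratio 4.71 ± 0.55, adjusted p 1.91e-06). Fcer1g, the signalling chain of Fc receptors, was at -1.31, -1.50 and -2.09 on the control arrays and 2.17, 2.44 and 2.04 on the EB+T+E arrays (log2 ratio 3.85 ± 0.41, adjusted p 7.36e-07). Spp1 (osteopontin) was at -5.78, -6.48 and -6.65 in controls and 0.24, 1.54 and -2.07 after EB+T+E (log2 ratio 6.21 ± 1.41, adjusted p 0.00161), with EB+T+E 3 below the other 2 EB+T+E arrays. All 8 cytokines of the list rose, among them Il10, which dampens inflammation (at least 2.72-fold higher, adjusted p 0.000373). Cx3cr1 was not called (log2 ratio -0.70 ± 0.38, adjusted p 0.152) and neither was Cd14 (log2 ratio 1.10 ± 0.63, adjusted p 0.178).

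Eosinophil genes rose and mast cell genes mostly were not called. All 5 tested eosinophil genes were higher, with Ccr3, the eotaxin receptor, at -9.17, -9.06 and -9.45 on control arrays against -2.26, -2.31 and -4.15 on EB+T+E arrays (at least 19.1-fold higher, adjusted p 6.21e-06). Prg2, the major basic protein of their granules, was at -8.01, -7.37 and -7.31 on the control arrays and -5.34, -5.13 and -5.00 on the EB+T+E arrays (log2 ratio 2.41 ± 0.71, adjusted p 0.0109). The eotaxin Ccl24 was at -4.55, -5.02 and -5.68 in controls and -2.63, -1.60 and -3.20 after EB+T+E (log2 ratio 2.61 ± 0.48, adjusted p 0.000203). Of 10 mast cell genes 1 rose, the protease gene Mcpt1 (1.48 ± 0.49, adjusted p 0.0216). A single one fell, Gata2 (-1.56 ± 0.49, adjusted p 0.0156), which luminal cells also express. The call of Mcpt1 was lost without control 2, control 3, EB+T+E 1 or EB+T+E 2 (adjusted p 0.0581 to 0.126), and that of Gata2 without control 1, EB+T+E 1 or EB+T+E 2 (0.0551 to 0.106). Over the 15 genes the count of risers was 6, and it was 3 without control 2, 3 without EB+T+E 1 and 3 without EB+T+E 2.

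T cell and natural killer (NK) cell genes rose in 29 of 35 tested members (median 3.83, or 3.72 with 11 members at their bounds). The T and NK cell list had a median of 2.30 under normexp. All 10 receptor and co-receptor genes rose. Cd4, carried by helper T cells and also by rat macrophages, had levels of -1.50, -1.49 and -1.96 on control arrays against 1.22, 1.39 and 0.67 on EB+T+E arrays (log2 ratio 2.74 ± 0.31, adjusted p 1.19e-06). Cd8a, carried by cytotoxic T cells, was at -6.86, -4.27 and -8.39 on the control arrays and -1.79, -2.20 and -4.05 on the EB+T+E arrays (log2 ratio 3.83 ± 0.94, adjusted p 0.00296). Cd3e, part of the T cell receptor complex, was at -7.97, -7.61 and -8.78 in controls and -2.47, -2.77 and -4.59 after EB+T+E (at least 14.8-fold higher, adjusted p 8.57e-05). Icos, a costimulator of activated T cells, was at -8.05, -9.06 and -8.66 on control arrays against -0.11, -0.54 and -1.79 on EB+T+E arrays (at least 81.4-fold higher, adjusted p 1.19e-06). Of 10 cytotoxic genes 9 rose, including Prf1 (perforin) at -6.43, -7.04 and -6.82 on the control arrays and -1.07, -1.22 and -2.35 on the EB+T+E arrays (log2 ratio 5.22 ± 0.59, adjusted p 1.43e-06). Nkg7, a granule protein, was at -4.30, -5.09 and -5.03 in controls and -0.66, -0.94 and -1.69 after EB+T+E (log2 ratio 3.71 ± 0.43, adjusted p 1.69e-06). Gzma, a granzyme, was the cytotoxic gene not called, at -1.87, -2.16 and -3.52 on control arrays against -2.92, -3.09 and -4.06 on EB+T+E arrays (log2 ratio -0.84 ± 0.76, adjusted p 0.403). Foxp3, the factor of regulatory T cells, was not called (log2 ratio 1.34 ± 0.76, adjusted p 0.17). Levels of this list were lowest on EB+T+E 3 among the EB+T+E arrays, with list medians of -5.94, -6.12 and -6.82 on the control arrays and -1.90, -2.36 and -4.01 on the EB+T+E arrays. Without EB+T+E 3 the median ratio was 4.49.

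B cell and plasma cell genes rose in 21 of 26 tested members, with a median of 4.73, or 3.16 with 13 members at their bounds. The B and plasma cell list had a median of 2.29 under normexp. Ms4a1, which encodes CD20, had levels of -9.37, -9.31 and -9.67 on the control arrays and 1.28, 0.56 and -1.64 on the EB+T+E arrays (at least 150-fold higher, adjusted p 6.23e-06). Spib, a transcription factor of B cells, was at -8.42, -7.26 and -9.35 in controls and 1.27, 0.95 and -1.56 after EB+T+E (at least 166-fold higher, adjusted p 6.23e-06). EB+T+E 3 was the lowest of the EB+T+E arrays for both of these genes and lay above all controls. Genes of antibody secretion rose with them, including Mzb1, a chaperone of immunoglobulin assembly, at -9.31, -9.22 and -9.68 on control arrays against -1.61, -1.96 and -3.72 on EB+T+E arrays (at least 26.6-fold higher, adjusted p 3.87e-06). Tnfrsf17, the survival receptor of plasma cells, was at -9.10, -9.09 and -9.37 on the control arrays and -0.74, -1.0 and -3.17 on the EB+T+E arrays (at least 46-fold higher, adjusted p 4.02e-06). Irf4, needed for plasma cell formation, was at -6.02, -6.36 and -7.53 in controls and 0.08, -0.22 and -2.46 after EB+T+E (log2 ratio 5.77 ± 0.68, adjusted p 1.91e-06). The members that fell, named after their values were seen, were Derl3 (-1.82 ± 0.62, adjusted p 0.0251) and Fkbp11 (-1.67 ± 0.48, adjusted p 0.00872), endoplasmic reticulum proteins that prostate secretory cells also make. The call of Derl3 was lost without control 1, control 2, EB+T+E 1 or EB+T+E 2 (adjusted p 0.0513 to 0.113), and that of Fkbp11 without EB+T+E 1 (0.0653). Pax5, a B cell identity factor, was not called (log2 ratio -0.27 ± 0.38, adjusted p 0.605).

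Chemokines, receptors and cytokines that organise lymphoid tissue rose in 20 of 26 members (median 3.91). The lymphoid list had a median of 2.20 under normexp. Cxcl13, which attracts B cells into follicles, had levels of -4.71, -4.52 and -4.89 on control arrays against 2.72, 2.25 and 1.63 on EB+T+E arrays (log2 ratio 6.90 ± 0.81, adjusted p 1.91e-06), and its receptor Cxcr5 was not called (log2 ratio 1.72 ± 0.81, adjusted p 0.0971). Ccl19 is described above, and its receptor Ccr7 rose too, from a level not above background (at least 8.45-fold higher, adjusted p 8.7e-06). Cxcl9, induced by interferon gamma, was at -5.75, -5.68 and -6.65 on the control arrays and -1.19, -1.86 and -2.82 on the EB+T+E arrays (log2 ratio 4.07 ± 0.55, adjusted p 8.06e-06). Ccl5, made by T cells, was at -2.26, -1.72 and -2.85 in controls and 3.21, 2.86 and 1.58 after EB+T+E (log2 ratio 4.82 ± 0.60, adjusted p 3.87e-06). Cxcr4, the receptor of Cxcl12, was at -6.48, -6.36 and -6.42 on control arrays against -0.92, -1.36 and -3.00 on EB+T+E arrays (log2 ratio 4.66 ± 0.62, adjusted p 7.08e-06). Ltb and Lta, the lymphotoxins that induce lymphoid stroma, rose (log2 ratio 4.31 ± 0.66, adjusted p 3.08e-05 and log2 ratio 2.95 ± 0.85, adjusted p 0.00957). The call of Lta was lost without control 2 or EB+T+E 1 (adjusted p 0.0568 to 0.1). The log2 ratio of Lta was 4.45 without control 1 and 1.90 without control 2. Ltbr, the lymphotoxin beta receptor, fell (-0.79 ± 0.20, adjusted p 0.00445), the single member that did, named after its value was seen. Glycam1, an adhesion ligand of lymph node vessels, was at -8.32, -9.17 and -9.56 on the control arrays and -1.92, -3.47 and -7.92 on the EB+T+E arrays (at least 6.61-fold higher, adjusted p 0.00351). Its level on EB+T+E 3 lay closer to control 1 than to the other EB+T+E arrays.

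**Figure D4:**
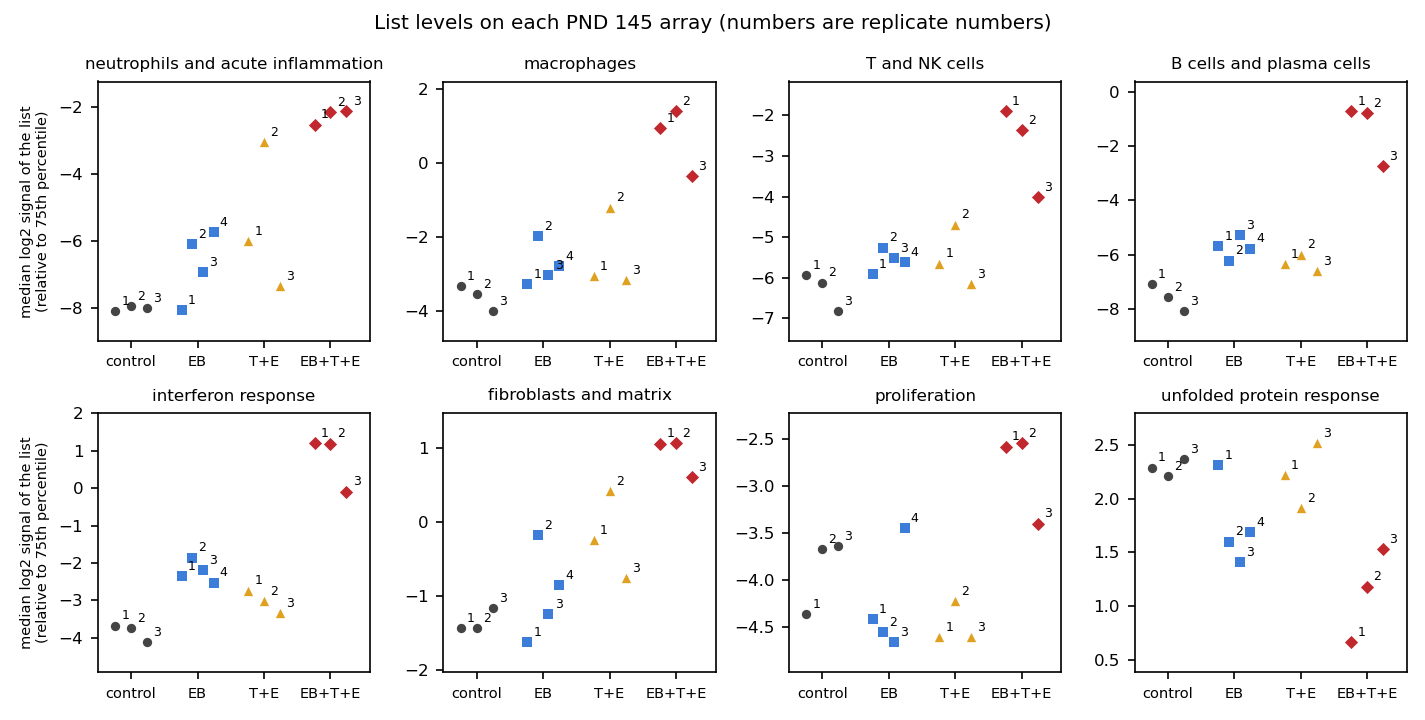
Median level (log2 signal relative to the 75th percentile of the array) of 8 gene lists on each PND 145 array, 1 panel per list and 1 point per array, with replicate numbers beside the points. The EB+T+E arrays lie above all others for the macrophage, T cell, B cell, interferon and fibroblast lists, EB+T+E 3 is the lowest of them in these 5 panels, and T+E 2 is the highest array outside EB+T+E in the neutrophil panel.

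Genes that present antigen rose on both arms. In the class II pathway, which shows peptides to helper T cells, 13 of 18 members rose, with a median of 3.26. The class II list had a median of 2.17 under normexp. Cd74, the invariant chain, had levels of 0.51, 0.24 and -0.38 in controls and 4.67, 4.55 and 3.63 after EB+T+E (log2 ratio 4.16 ± 0.51, adjusted p 3.51e-06). RT1-Bb, a class II beta chain, was at -1.05, -1.92 and -1.53 on control arrays against 3.46, 3.35 and 2.97 on EB+T+E arrays (log2 ratio 4.77 ± 0.62, adjusted p 5.74e-06). Ciita, the master regulator of class II genes, was at -5.01, -5.24 and -5.92 on the control arrays and 0.30, 0.27 and -1.15 on the EB+T+E arrays (log2 ratio 5.20 ± 0.72, adjusted p 1.06e-05). RT1-DOb (at least 17.2-fold higher, adjusted p 3.87e-06) and Cd83, a marker of mature dendritic cells (log2 ratio 4.09 ± 0.53, adjusted p 6.01e-06), rose as well. In the class I pathway 15 of 19 members rose, with a lower median of 1.00. The class I list had a median of 1.54 under quantile scaling. Nlrc5, the regulator of class I genes, was at -1.88, -1.77 and -2.14 in controls and 2.22, 1.87 and 0.88 after EB+T+E (log2 ratio 3.59 ± 0.56, adjusted p 3.54e-05). Psmb8, a subunit of the immunoproteasome, was at 0.64, -0.37 and 0.21 on control arrays against 3.51, 3.31 and 3.02 on EB+T+E arrays (log2 ratio 3.12 ± 0.58, adjusted p 0.000246). RT1-N3 (log2 ratio 3.96 ± 0.61, adjusted p 3.08e-05) and RT1-CE10 (log2 ratio 3.48 ± 0.64, adjusted p 0.000211) had larger ratios than the classical RT1-A1 (log2 ratio 0.93 ± 0.27, adjusted p 0.0104). RT1 probes may bind several genes of this family, so their single values are uncertain. B2m, the light chain of all class I molecules, was not called, at 5.96, 5.82 and 5.56 on the control arrays and 5.57, 5.57 and 5.45 on the EB+T+E arrays (log2 ratio -0.25 ± 0.28, adjusted p 0.507). The class I members that fell were Calr (-1.27 ± 0.39, adjusted p 0.0152) and Pdia3 (-1.49 ± 0.39, adjusted p 0.00498), chaperones that also belong to the protein folding list below. The call of Calr was lost without EB+T+E 1 (adjusted p 0.115), and that of Pdia3 without EB+T+E 1 (0.0506).

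Interferon-responsive genes rose in 36 of 42 tested members, with a median of 3.93. The count was 36 to 37 with each array left out in turn. All 6 transcription factors of the list rose. Irf7, the amplifier of type I interferon, had levels of -1.84, -1.60 and -2.64 in controls and 3.29, 1.60 and 2.88 after EB+T+E (log2 ratio 4.61 ± 0.93, adjusted p 0.000545). Irf8, a factor of macrophages and B cells, was at -2.96, -3.25 and -3.57 on control arrays against 1.99, 2.12 and 0.21 on EB+T+E arrays (log2 ratio 4.70 ± 0.63, adjusted p 7.08e-06). Both were above all controls on each EB+T+E array, as were 20.6% of all genes. The sensors of foreign nucleic acid rose except Ifih1 (log2 ratio 0.55 ± 1.14, adjusted p 0.737), with Zbp1 at -6.56, -6.12 and -7.59 on the control arrays and -0.19, -0.36 and -1.97 on the EB+T+E arrays (log2 ratio 5.92 ± 0.91, adjusted p 3.17e-05). Among the effectors, Ifit3, which blocks translation of viral RNA, was at -6.62, -6.10 and -6.94 in controls and -0.11, 0.47 and -0.69 after EB+T+E (log2 ratio 6.44 ± 1.34, adjusted p 0.000701). Gbp5, a guanylate-binding protein, was at -3.39, -3.51 and -4.06 on control arrays against 1.40, 0.88 and -0.38 on EB+T+E arrays (log2 ratio 4.28 ± 0.57, adjusted p 6.98e-06). Herc6, a ligase for the ubiquitin-like ISG15, was at -3.45, -4.63 and -4.60 on the control arrays and 1.64, 1.68 and 0.20 on the EB+T+E arrays (log2 ratio 5.40 ± 0.72, adjusted p 6.76e-06). Cmpk2, a nucleotide kinase, was at -4.70, -4.57 and -5.49 in controls and 0.81, 1.04 and -0.76 after EB+T+E (log2 ratio 5.28 ± 0.66, adjusted p 3.87e-06). EB+T+E 3 was the lowest EB+T+E array for Gbp5, Herc6 and Cmpk2.

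Promoter sequences of these genes were read from RefSeq (rat build GRCr8), 250 bases before the first listed start of each gene. The interferon-stimulated response element (ISRE) was searched as GAAA, any 2 bases and GAAA, and the kappaB site, bound by the NF-kappaB factors of inflammation, as GGGA, any 1 base and TTTCC, on both strands, and no ISRE match overlaps a kappaB match in the sequences shown. An ISRE match was found in 20 of 31 promoters of the interferon list (64.5%) and 8 of 16 of the class I list, against 902 of 27457 promoters in all (3.29%). Over the genes tested it was in 376 of 13370 promoters (2.81%). Among genes called higher it was in 112 of 1987 promoters (5.64%), and among genes called lower in 72 of 3043 (2.37%). A kappaB match was found in 6 of 23 promoters of the neutrophil and acute inflammation list (26.1%), against 87 of 27457 in all (0.317%). Over the genes tested it was in 61 of 13370 promoters (0.456%). It was in 1.36% of promoters of genes called higher and 0.197% of those called lower. An estrogen response element (GGTCA, any 3 bases, TGACC) matched 6 of 27457 promoters (0.0219%) and an androgen response element (GNACA, any 3 bases, TGTNC) 100 (0.364%). A match is a description of letters in this window and says nothing of a factor's binding.

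Shown here are 7 promoters, each 5′ to 3′ on the gene's strand with the matched motifs in capitals, for 2 interferon-responsive genes with an ISRE, 2 inflammation genes with a kappaB site, and 3 genes with both, of which B2m was not called.
Ifit3, chr1:241527076-241527325, + strand: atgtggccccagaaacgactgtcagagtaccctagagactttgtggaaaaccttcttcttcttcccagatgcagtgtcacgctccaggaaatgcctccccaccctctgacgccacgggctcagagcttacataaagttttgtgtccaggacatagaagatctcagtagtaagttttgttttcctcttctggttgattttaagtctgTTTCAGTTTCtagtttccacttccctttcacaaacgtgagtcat
Irf7, chr1:205800024-205800273, - strand: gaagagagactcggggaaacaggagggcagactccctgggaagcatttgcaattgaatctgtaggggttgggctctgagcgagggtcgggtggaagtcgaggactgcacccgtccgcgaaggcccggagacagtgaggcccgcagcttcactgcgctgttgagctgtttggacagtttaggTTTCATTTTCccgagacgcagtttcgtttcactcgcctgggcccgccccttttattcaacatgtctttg
Cxcl1, chr14:17479322-17479571, - strand: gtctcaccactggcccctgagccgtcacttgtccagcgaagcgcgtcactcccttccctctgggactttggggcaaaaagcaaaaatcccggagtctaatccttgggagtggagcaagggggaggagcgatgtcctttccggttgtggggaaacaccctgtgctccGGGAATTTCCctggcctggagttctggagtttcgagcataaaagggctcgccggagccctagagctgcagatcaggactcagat
Nfkbiz, chr11:58251471-58251720, + strand: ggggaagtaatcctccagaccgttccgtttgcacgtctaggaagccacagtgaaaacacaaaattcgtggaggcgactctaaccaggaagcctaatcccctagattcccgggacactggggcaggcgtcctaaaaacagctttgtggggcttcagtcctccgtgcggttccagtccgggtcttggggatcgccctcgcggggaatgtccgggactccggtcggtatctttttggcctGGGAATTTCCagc
Gbp5, chr2:233910749-233910998, + strand: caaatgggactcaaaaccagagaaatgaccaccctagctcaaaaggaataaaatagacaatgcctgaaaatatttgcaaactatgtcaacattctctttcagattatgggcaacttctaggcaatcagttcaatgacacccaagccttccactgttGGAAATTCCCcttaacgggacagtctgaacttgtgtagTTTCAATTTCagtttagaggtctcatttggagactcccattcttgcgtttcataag
Tap1, chr20:4668544-4668793, - strand: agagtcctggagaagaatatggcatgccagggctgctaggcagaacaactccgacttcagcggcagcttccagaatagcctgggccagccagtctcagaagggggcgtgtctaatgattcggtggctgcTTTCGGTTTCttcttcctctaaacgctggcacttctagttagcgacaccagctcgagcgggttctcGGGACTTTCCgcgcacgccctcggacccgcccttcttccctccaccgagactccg
B2m, chr3:129549080-129549329, + strand: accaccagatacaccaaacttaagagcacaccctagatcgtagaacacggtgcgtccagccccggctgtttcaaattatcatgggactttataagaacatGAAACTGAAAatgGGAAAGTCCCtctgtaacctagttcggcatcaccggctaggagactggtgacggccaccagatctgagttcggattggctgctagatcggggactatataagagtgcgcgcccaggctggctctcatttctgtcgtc
The ISRE match nearest the start of Ifit3 began 44 bases before it, and that of Irf7 69 bases before. Nfkbiz, a regulator of NF-kappaB target genes with a kappaB match that began 13 bases before its start, had levels of -6.38, -7.22 and -8.09 on control arrays against -3.54, -3.74 and -3.35 on EB+T+E arrays (log2 ratio 3.69 ± 0.79, adjusted p 0.000948). Tap1, which carries peptides to class I molecules, was at -3.01, -3.07 and -3.14 on the control arrays and -0.69, -0.40 and -1.44 on the EB+T+E arrays (log2 ratio 2.23 ± 0.44, adjusted p 0.000439). B2m, whose window holds both motifs, had a ratio of -0.25 ± 0.28, and Gbp5, with both, 4.28 ± 0.57.

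Complement genes rose in 21 of 27 members (median 3.36). Of 15 components 14 rose, from the recognition unit C1qa (log2 ratio 3.72 ± 0.48, adjusted p 4.93e-06) and C1qb (log2 ratio 3.54 ± 0.41, adjusted p 1.69e-06) to C3, described above, and C4b, at -0.51, 0.10 and -0.48 in controls and 4.04, 4.65 and 4.00 after EB+T+E (log2 ratio 4.53 ± 0.68, adjusted p 2.61e-05). Cfp (properdin), which stabilises the alternative pathway convertase, was at -4.38, -5.14 and -5.07 on control arrays against -1.02, -0.60 and -2.08 on EB+T+E arrays (log2 ratio 3.64 ± 0.47, adjusted p 5.31e-06). Itgam, part of a complement receptor on phagocytes, was at -6.30, -5.23 and -5.69 on the control arrays and -1.40, -1.11 and -1.83 on the EB+T+E arrays (log2 ratio 4.29 ± 0.55, adjusted p 5.22e-06). C5 was the component not called (log2 ratio -0.81 ± 1.37, adjusted p 0.671). Of the regulators 3 of 8 rose, and Cd59b, which protects cells from lysis, fell (-1.27 ± 0.30, adjusted p 0.00213), named after its value was seen.

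Genes of fibroblasts and the extracellular matrix rose in 34 of 43 members, with a median of 2.10; the count was 27 to 32 with each array left out in turn. Col3a1, the collagen of loose and healing connective tissue, had levels of 0.32, 0.06 and 0.66 in controls and 4.17, 3.26 and 3.12 after EB+T+E (log2 ratio 3.17 ± 0.53, adjusted p 7.38e-05). Postn (periostin), a matrix protein of wound repair, was at -4.51, -5.85 and -5.33 on control arrays against -1.07, -1.40 and -1.70 on EB+T+E arrays (log2 ratio 3.84 ± 0.58, adjusted p 2.42e-05). Mfap4, of elastic fibres, was at -3.49, -4.14 and -3.86 on the control arrays and -1.71, -1.73 and -1.87 on the EB+T+E arrays (log2 ratio 2.06 ± 0.33, adjusted p 4.57e-05). Mmp2, which degrades basement membrane collagen, was at -0.32, -0.82 and -0.40 in controls and 2.07, 1.94 and 1.55 after EB+T+E (log2 ratio 2.37 ± 0.40, adjusted p 8.37e-05). Fn1 (fibronectin) was at -1.84, -1.44 and -1.47 on control arrays against 2.34, 2.31 and 1.58 on EB+T+E arrays (log2 ratio 3.66 ± 0.62, adjusted p 8.77e-05). EB+T+E arrays lay above all controls for 40 of the 43 genes, against 20.6% of all genes. Timp1, an inhibitor of matrix proteases, rose beside them (log2 ratio 3.13 ± 0.59, adjusted p 0.000283).

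Endothelial genes rose in 18 of 26 members (median 1.64). Icam1 and Vcam1, adhesion molecules that hold leukocytes to activated vessels, both rose. Icam1 was at -3.38, -3.53 and -3.64 on the control arrays and 0.31, 0.34 and -0.71 on the EB+T+E arrays (log2 ratio 3.50 ± 0.59, adjusted p 7.93e-05). Vcam1 was at -0.54, -0.74 and -1.07 in controls and 2.71, 2.49 and 1.55 after EB+T+E (log2 ratio 3.03 ± 0.63, adjusted p 0.000774). Sox18, a factor of vessel and lymphatic development, was at -4.08, -4.06 and -3.69 on control arrays against -1.07, -1.73 and -1.68 on EB+T+E arrays (log2 ratio 2.45 ± 0.43, adjusted p 0.000127). Kdr, the main receptor for VEGF, was at -0.83, -0.76 and -0.49 on the control arrays and 2.54, 2.16 and 0.65 on the EB+T+E arrays (log2 ratio 2.48 ± 0.60, adjusted p 0.00256). Aplnr, the apelin receptor, rose from a level not above background (at least 4.11-fold higher, adjusted p 0.00188). Selp, the P-selectin of activated vessels, was not called (log2 ratio -0.70 ± 1.04, adjusted p 0.63).

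Of 24 smooth muscle genes 8 were called lower and 2 higher, beside 20.7% lower and 14.7% higher of all genes. Their median was -0.68, with -1.5 within slide 3 and -0.12 within slide 4. The smooth muscle list had 1 higher and 5 lower calls under normexp, and 2 higher and 4 lower calls under quantile scaling. With that scaling 3513 of all 23156 genes were called lower. The count that fell was 2 without control 1, 3 without control 2, 4 without control 3, 2 without EB+T+E 1 and 0 without EB+T+E 2. Without EB+T+E 2 limma called none lower, and 3 had an unadjusted p under 0.05. Mylk, the kinase that starts contraction, had levels of 3.28, 3.32 and 3.88 in controls and 2.23, 0.23 and 1.65 after EB+T+E (log2 ratio -2.12 ± 0.56, adjusted p 0.00503). Myl9, its substrate, was at 2.64, 2.53 and 2.64 on control arrays against 1.5, 0.84 and 2.08 on EB+T+E arrays (log2 ratio -1.13 ± 0.38, adjusted p 0.0232). Kcnmb1, a potassium channel subunit of smooth muscle, was at -2.45, -2.69 and -2.72 on the control arrays and -4.13, -4.94 and -3.52 on the EB+T+E arrays (log2 ratio -1.57 ± 0.43, adjusted p 0.00686). The call of Mylk was lost without EB+T+E 2 (adjusted p 0.0521), that of Myl9 without control 1, control 3, EB+T+E 1 or EB+T+E 2 (0.0555 to 0.145), and that of Kcnmb1 without EB+T+E 2 (0.0583). The risers were Itga8, an integrin of stromal cells, at -6.00, -6.04 and -6.16 in controls and -3.10, -3.60 and -3.44 after EB+T+E (log2 ratio 2.69 ± 0.62, adjusted p 0.0018), and Pln, phospholamban (log2 ratio 1.22 ± 0.47, adjusted p 0.0432). The call of Pln was lost without control 1, control 2, control 3, EB+T+E 1 or EB+T+E 3 (adjusted p 0.0673 to 0.189). The main smooth muscle actin, Acta2, was not called (log2 ratio -0.70 ± 0.48, adjusted p 0.262).

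Neuron and glia genes rose in 11 of 26 members, with a median of 2.41, which was 2.75 within slide 3 and 0.84 within slide 4. The nerve list had a median of 1.35 and 4 higher calls under normexp. The count that rose was 7 without control 1, 2 without control 3, 0 without EB+T+E 1, 2 without EB+T+E 2 and 19 without EB+T+E 3. Without EB+T+E 1 limma called none higher, and 7 had an unadjusted p under 0.05. Dbh, an enzyme of noradrenaline synthesis, had levels of -7.80, -6.23 and -6.81 on control arrays against 1.28, -0.38 and -4.96 on EB+T+E arrays (log2 ratio 5.60 ± 1.76, adjusted p 0.0162). Snap25, of synaptic vesicle release, was at -9.11, -8.92 and -9.45 on the control arrays and -2.24, -2.96 and -5.60 on the EB+T+E arrays (at least 11.8-fold higher, adjusted p 0.00986). Stmn2, of growing axons, was at -7.99, -7.43 and -8.75 in controls and -0.77, -1.62 and -5.49 after EB+T+E (at least 23.2-fold higher, adjusted p 0.0161). All 3 were lowest on EB+T+E 3 among the EB+T+E arrays, and above all controls there. The call of Dbh was lost without control 1, EB+T+E 1 or EB+T+E 2 (adjusted p 0.0539 to 0.109), that of Snap25 without EB+T+E 1 (0.0539), and that of Stmn2 without control 3, EB+T+E 1 or EB+T+E 2 (0.0508 to 0.0889). The single member that fell was Ncam1, at 1.08, 2.01 and 1.62 on control arrays against -1.13, -1.31 and -0.89 on EB+T+E arrays (log2 ratio -2.68 ± 0.53, adjusted p 0.00045). Against the same controls the median of this list was 1.58 for EB and -0.05 for T+E, with none called. EB+T+E against EB had a median of 0.60, with none higher and 1 lower. Against T+E it was 2.52, with 6 higher and 1 lower. List medians ranged from -4.50 to -1.15 on the EB arrays and -3.92 to -0.80 on the EB+T+E arrays, which overlap. Whether nerve or ganglion tissue was taken with these prostates was not tested.

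Genes of cell division rose in 17 of 46 members (median 1.06), of which 6 of 15 act in replication, 4 of 11 are cyclins and regulators and 7 of 20 act in mitosis. The proliferation list had a median of 0.67 under normexp. Mcm3, a subunit of the replicative helicase, had levels of -1.61, -2.59 and -1.52 on the control arrays and 1.67, 1.19 and -0.31 on the EB+T+E arrays (log2 ratio 2.76 ± 0.46, adjusted p 8.53e-05). Ccna2 (cyclin A) was at -6.63, -6.75 and -4.35 in controls and -2.26, -2.25 and -3.95 after EB+T+E (log2 ratio 3.09 ± 0.79, adjusted p 0.00411). Kif23, a kinesin of cell separation, was at -5.93, -6.50 and -5.14 on control arrays against -3.29, -3.15 and -3.30 on EB+T+E arrays (log2 ratio 2.61 ± 0.53, adjusted p 0.000564). Tyms, which makes thymidylate, was at -6.39, -6.18 and -6.25 on the control arrays and -4.65, -4.63 and -4.15 on the EB+T+E arrays (log2 ratio 1.80 ± 0.29, adjusted p 5.43e-05). Mki67, the Ki-67 antigen, was at -3.34, -3.29 and -2.08 in controls and -0.48, -0.83 and -1.55 after EB+T+E (log2 ratio 1.95 ± 0.58, adjusted p 0.0118). The count was 9 without control 1, 8 without control 2, 6 without EB+T+E 1 and 8 without EB+T+E 2, and within slide 4 the list's median was 0.12, against 1.38 within slide 3. The call of Mki67 was lost without control 2 or EB+T+E 1 (adjusted p 0.0519 to 0.0607). Dividing lymphocytes express these genes as well. EB+T+E 3 was the lowest EB+T+E array in the T cell list and in this list. T cell list medians were -1.90, -2.36 and -4.01, and proliferation list medians -2.58, -2.54 and -3.40, on EB+T+E 1, 2 and 3. At the earlier age described below, the median ratio was 2.02 for proliferation (33 of 46 higher), 1.26 for T and NK cells and 1.01 for B and plasma cells. At the age described here these medians were 1.06, 3.83 and 4.73. The part of lymphocytes in the count was not tested.

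Luminal epithelial genes fell in 10 of 26 members and rose in 2, with a median of -1.02. The luminal list had a median of -0.58 and 4 higher and 5 lower calls under quantile scaling. Of 10 regulators of gene expression 7 fell. Foxa1, which opens chromatin for steroid receptors, had levels of 0.24, 0.79 and 0.41 on control arrays against -1.67, -1.44 and -0.11 on EB+T+E arrays (log2 ratio -1.55 ± 0.45, adjusted p 0.00952). Grhl2, an epithelial identity factor, was at 0.68, 0.04 and 0.26 on the control arrays and -2.70, -3.05 and -0.56 on the EB+T+E arrays (log2 ratio -2.43 ± 0.67, adjusted p 0.0069). Hoxb13, a homeobox factor of the prostate, was at 4.48, 4.48 and 4.55 in controls and 1.85, 2.55 and 3.83 after EB+T+E (log2 ratio -1.76 ± 0.62, adjusted p 0.0297). For all 3 EB+T+E 3 was the EB+T+E array nearest to the controls. The keratin Krt18 fell (-1.05 ± 0.38, adjusted p 0.0339) and its partner Krt8 was not called (-0.30 ± 0.74, adjusted p 0.778). The keratin Krt7 rose, at -1.96, -2.57 and -2.29 on control arrays against 0.78, 1.62 and 0.18 on EB+T+E arrays (log2 ratio 3.13 ± 1.06, adjusted p 0.0241), named after its value was seen. The count that fell was 4 without control 1, 5 without control 2, 6 without control 3, 2 without EB+T+E 1 and 5 without EB+T+E 2. The call of Foxa1 was lost without EB+T+E 1 (adjusted p 0.0674), that of Grhl2 without EB+T+E 2 (0.0512), that of Hoxb13 without control 1, control 2, control 3, EB+T+E 1 or EB+T+E 2 (0.0616 to 0.166), that of Krt18 without control 1, control 2, EB+T+E 1 or EB+T+E 2 (0.0754 to 0.195), and that of Krt7 without control 2, control 3, EB+T+E 1 or EB+T+E 2 (0.0539 to 0.0918). Summed luminal signal was 7.89 to 7.94 (log2) on control arrays and 6.40 to 7.52 on EB+T+E arrays. Over the macrophage list the corresponding ranges were 5.22 to 5.36 and 7.08 to 7.73. The part of tissue composition in the falls was not tested.

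Basal and squamous genes moved both ways, with 4 of 23 members higher, 2 lower and a median of 0.06. These counts lie beside 14.7% and 20.7% of all genes. The basal list had a median of 0.00 and 2 higher and 2 lower calls under normexp, and a median of 0.32 and 4 higher and 1 lower calls under quantile scaling. The count that rose was 2 without control 1, 2 without control 3, 2 without EB+T+E 1 and 2 without EB+T+E 2. Itgb4, which anchors basal cells to their membrane, rose, at 0.72, 0.67 and 0.87 on the control arrays and 2.63, 2.73 and 1.99 on the EB+T+E arrays (log2 ratio 1.70 ± 0.34, adjusted p 0.00058). S100a14, a calcium-binding protein, was at -6.14, -6.42 and -6.35 in controls and -3.13, -2.35 and -3.09 after EB+T+E (log2 ratio 3.45 ± 0.59, adjusted p 9.92e-05). Col17a1 (0.97 ± 0.34, adjusted p 0.0286) and Pkp1 (1.14 ± 0.44, adjusted p 0.0452), of the junctions of these cells, rose less. Krt15 (-1.44 ± 0.42, adjusted p 0.00986) and Krt10 (-1.05 ± 0.20, adjusted p 0.000304) fell. The call of Col17a1 was lost without control 1, control 3, EB+T+E 1 or EB+T+E 2 (adjusted p 0.0546 to 0.16), that of Pkp1 without control 1, control 2, control 3, EB+T+E 1 or EB+T+E 2 (0.0649 to 0.189), and that of Krt15 without control 1 (0.0549). The basal keratins Krt5 (-0.63 ± 0.44, adjusted p 0.272) and Krt14 (-0.21 ± 0.40, adjusted p 0.701) and the basal factor Tp63 (-0.47 ± 0.37, adjusted p 0.336) were not called.

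Genes that fold and export secretory proteins fell. In the unfolded protein response list 20 of 33 members fell, with a median of -1.18. The unfolded protein response list had a median of -0.76 under quantile scaling. Of 15 chaperones 14 fell. Hsp90b1 (GRP94) had levels of 4.33, 3.81 and 4.01 on control arrays against 2.46, 2.82 and 2.18 on EB+T+E arrays (log2 ratio -1.56 ± 0.31, adjusted p 0.000419). Pdia4, which forms disulfide bonds, was at 1.41, 0.53 and 1.08 on the control arrays and -0.70, -0.36 and -0.68 on the EB+T+E arrays (log2 ratio -1.59 ± 0.28, adjusted p 0.000158). Canx (calnexin), a chaperone of glycoproteins, was at 4.05, 4.09 and 3.95 in controls and 2.61, 2.73 and 3.02 after EB+T+E (log2 ratio -1.24 ± 0.23, adjusted p 0.000214). Hspa5 (BiP), the main chaperone of the endoplasmic reticulum, was at 5.56, 5.21 and 5.35 on control arrays against 3.84, 4.14 and 4.59 on EB+T+E arrays (log2 ratio -1.18 ± 0.29, adjusted p 0.00353). The sensors Atf6 (-1.41 ± 0.23, adjusted p 5.9e-05) and Ern1 (-2.12 ± 0.48, adjusted p 0.00153) fell, and Eif2ak3 was not called (-0.41 ± 0.36, adjusted p 0.392). The stress factor Atf3 rose (1.86 ± 0.70, adjusted p 0.039), the single member that did, named after its value was seen. The call of Atf3 was lost without any 1 of the 6 arrays (adjusted p 0.0587 to 0.134). The count that fell was 9 without EB+T+E 1. Each of the 4 chaperones described lay below all controls on each EB+T+E array, as 31.6% of all genes did.

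Sterol and fatty acid synthesis genes had a median of -0.96, and 8 of 33 fell. That share is near the 20.7% of all genes called lower. The sterol and fatty acid list had 5 lower calls under normexp. Thrsp, a regulator of fatty acid synthesis, had levels of 0.81, -1.26 and -0.49 on the control arrays and -3.01, -4.00 and -3.44 on the EB+T+E arrays (log2 ratio -3.17 ± 0.66, adjusted p 0.000724). Me1 (malic enzyme), which supplies NADPH, was at 2.84, 2.87 and 3.11 in controls and 0.76, 0.91 and 1.5 after EB+T+E (log2 ratio -1.88 ± 0.42, adjusted p 0.00142). Hsd17b7, an enzyme of sterol synthesis, was at -1.26, -1.36 and -1.61 on control arrays against -4.04, -3.90 and -2.44 on EB+T+E arrays (log2 ratio -2.05 ± 0.52, adjusted p 0.00405). Acss2, which activates acetate, rose, at -2.77, -3.09 and -3.35 on the control arrays and -2.0, -1.57 and -1.94 on the EB+T+E arrays (log2 ratio 1.23 ± 0.31, adjusted p 0.00388). Of 22 cholesterol genes 3 fell. The count that fell was 4 without control 2, 5 without control 3, 3 without EB+T+E 1 and 4 without EB+T+E 2.

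Antioxidant genes moved both ways, 8 of 33 higher and 10 lower (median 0.08), beside 14.7% and 20.7% of all genes. The antioxidant list had a median of 0.01 and 5 higher and 8 lower calls under normexp, and a median of 0.34 and 10 higher and 5 lower calls under quantile scaling. Hmox1 (heme oxygenase 1), which breaks down heme, rose, at -3.62, -4.18 and -4.37 in controls and -1.03, -0.36 and -1.49 after EB+T+E (log2 ratio 3.10 ± 0.58, adjusted p 0.000246). Gpx2, a glutathione peroxidase of mucosal epithelia, rose too, at -0.17, 0.51 and 0.12 on control arrays against 2.80, 3.57 and 3.37 on EB+T+E arrays (log2 ratio 3.09 ± 0.88, adjusted p 0.00857). Catalase (Cat) fell, at -1.96, -1.40 and -1.19 on the control arrays and -3.87, -3.84 and -3.20 on the EB+T+E arrays (log2 ratio -2.12 ± 0.40, adjusted p 0.000292). Prdx6, a peroxidase of oxidised lipids, fell, at 5.99, 4.77 and 5.26 in controls and 3.33, 3.47 and 3.59 after EB+T+E (log2 ratio -1.88 ± 0.33, adjusted p 0.000147). Gpx4, which removes lipid peroxides from membranes, fell as well, at 4.45, 4.78 and 4.40 on control arrays against 3.61, 3.61 and 4.02 on EB+T+E arrays (log2 ratio -0.80 ± 0.16, adjusted p 0.000671). With quantile scaling Gpx4 was no longer called. Of 13 glutathione transferases 6 fell, with ratios from -2.65 (Gsta3) to -0.99 (Gstm4). The list's count that rose was 5 without control 2 and 5 without EB+T+E 3, and the count that fell was 6 without control 1.

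Secretory products of the prostate were examined lobe by lobe. Of 6 ventral products only Scgb1d4 was called (log2 ratio -5.26 ± 2.06, adjusted p 0.0487). The call of Scgb1d4 was lost without control 2, control 3, EB+T+E 1 or EB+T+E 2 (adjusted p 0.121 to 0.21). It was also lost under quantile scaling. With EB+T+E 3 left out the count of 6 that fell was 3. The others had levels that spread widely on the EB+T+E arrays. Scgb1d2, a secretoglobin, was at 2.16, 4.66 and 5.33 on the control arrays and -3.83, -3.76 and 5.65 on the EB+T+E arrays (log2 ratio -4.70 ± 2.14, adjusted p 0.0872). Scgb2a1, its relative, was at 5.41, 5.24 and 6.42 in controls and 3.25, 4.19 and 6.16 after EB+T+E (log2 ratio -1.16 ± 0.79, adjusted p 0.26). Sbp, a spermine-binding protein, was at 1.66, 3.19 and 6.54 on control arrays against -0.89, -0.82 and 6.20 on EB+T+E arrays (log2 ratio -2.30 ± 1.90, adjusted p 0.358). Cyss, a cystatin, was at -9.04, -8.82 and -5.65 on the control arrays and -9.67, -9.81 and -6.17 on the EB+T+E arrays (log2 ratio -0.71 ± 1.59, adjusted p 0.757). Andpro, given above, was not called (log2 ratio -4.84 ± 2.66, adjusted p 0.157). The groups overlapped for all 6, and for each of them EB+T+E 3 lay above at least 1 control and was the highest EB+T+E array. Without that array the list's median went from -3.50 to -6.21.

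Of 8 dorsolateral products Pbsn (log2 ratio -1.36 ± 0.36, adjusted p 0.00499) and Msmb (log2 ratio -1.09 ± 0.26, adjusted p 0.00276) fell, though neither call held with quantile scaling. Tgm4, the prostate transglutaminase, was at 6.31, 6.33 and 6.65 in controls and 5.75, 5.84 and 3.45 after EB+T+E (log2 ratio -1.42 ± 0.72, adjusted p 0.125). Klk1c10, a kallikrein, rose from a level not above background, at -9.14, -8.94 and -9.58 on control arrays against -5.60, -5.51 and -3.45 on EB+T+E arrays (at least 4.94-fold higher, adjusted p 0.00264), and other kallikreins were not called. Klk1c10 lost its call under normexp. Klk1c8 was at -3.27, 0.06 and 4.71 on the control arrays and -8.23, -8.41 and 1.94 on the EB+T+E arrays (log2 ratio -5.40 ± 2.98, adjusted p 0.159). Klk1c9 was at -3.45, -0.84 and 4.28 in controls and -8.50, -7.49 and 3.24 after EB+T+E (log2 ratio -4.25 ± 3.20, adjusted p 0.312). Kallikrein probes may bind several members of this family. Acp3, the prostatic acid phosphatase, was at -5.97, -5.89 and -5.23 on control arrays against -5.59, -5.95 and -5.19 on EB+T+E arrays (log2 ratio 0.12 ± 0.63, adjusted p 0.9). Wfdc10a, a small secreted protein, was at -4.78, -3.29 and -4.67 on the control arrays and -4.97, -5.02 and -4.14 on the EB+T+E arrays (log2 ratio -0.46 ± 0.55, adjusted p 0.535). In the EB+T+E group Klk1c8 and Klk1c9 were highest on EB+T+E 3.

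Seminal vesicle products had a median of -2.65, and -1.28 without control 2. The seminal vesicle list had 1 lower call under quantile scaling. Svs1 was at -5.37, 0.95 and -4.98 in controls and -6.56, -5.88 and -9.26 after EB+T+E (log2 ratio -4.10 ± 1.53, adjusted p 0.0392). Svs4, a secretory protein, was at 6.29, 6.88 and 6.32 on control arrays against 4.55, 5.03 and 5.50 on EB+T+E arrays (log2 ratio -1.47 ± 0.43, adjusted p 0.00995). Semg1, the semenogelin of the copulatory clot, was at 4.93, 5.03 and 4.82 on the control arrays and 3.92, 3.80 and 4.62 on the EB+T+E arrays (log2 ratio -0.82 ± 0.31, adjusted p 0.0407). These 3 were the members called of 9, and without control 2 none of the 9 was by limma, with 2 at an unadjusted p under 0.05. Svs1 then had a ratio of -2.06. The call of Svs1 was lost without control 2, EB+T+E 1 or EB+T+E 3 (adjusted p 0.0672 to 0.32), that of Svs4 without control 2 or EB+T+E 1 (0.0519 to 0.0625), and that of Semg1 without control 1, control 2, control 3, EB+T+E 1 or EB+T+E 2 (0.063 to 0.16). Quantile scaling ended the calls of Svs4 and Semg1 too. Spermatid genes fell in 13 of 17 members, and in 7 without control 2, where the median was -1.64 in place of -3.95. The spermatid list had a median of -2.59 under normexp. The low levels were shared with the EB and T+E groups, and with the controls of PND 100. List medians were -7.86 to -6.95 on PND 100 controls and -5.73 to 1.58 on PND 145 controls. On the EB+T+E arrays of PND 145 they were -7.98 to -6.74. Every PND 145 control, not only control 2, thus lay above the PND 100 controls, and leaving out control 2 does not remove this difference. Against the PND 145 controls the median was -5.25 for EB (10 lower) and -5.01 for T+E (5 lower). Of all 23156 genes 87 were called lower for EB and 22 for T+E. Both comparisons include control 2 and were not repeated without it. EB+T+E against T+E had a median of 0.46 with none called. Against EB the median was 0.08, with 1 higher and none lower. Tnp2, a transition protein, was at -3.52, 2.38 and -5.73 in controls and -8.58, -7.09 and -9.26 after EB+T+E (log2 ratio -6.01 ± 1.29, adjusted p 0.000969). Oaz3, a testis antizyme of polyamine synthesis, was at -2.87, 2.97 and -4.48 on control arrays against -8.42, -6.48 and -8.63 on EB+T+E arrays (log2 ratio -6.39 ± 1.36, adjusted p 0.000922). Crisp2, a sperm protein, was at -3.63, 2.48 and -5.10 on the control arrays and -8.86, -7.73 and -9.26 on the EB+T+E arrays (at least 41-fold lower, adjusted p 0.0012). Without control 2 the ratios of Tnp2 and Oaz3 were -3.68 and -4.17. The prostate makes no sperm, and the source of this RNA was not tested.

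Both nuclear estrogen receptors were not called. Esr1, estrogen receptor alpha, had levels of -5.98, -5.29 and -4.99 in controls and -6.15, -6.07 and -5.31 after EB+T+E (log2 ratio -0.42 ± 0.47, adjusted p 0.509). Esr2, estrogen receptor beta, was at -5.33, -6.05 and -5.75 on control arrays against -7.35, -7.04 and -5.29 on EB+T+E arrays (log2 ratio -0.85 ± 0.68, adjusted p 0.344). Control and EB+T+E arrays overlapped for both. Pgr, a classical estrogen target, had levels of -9.19, -8.93 and -7.98 on the control arrays and -5.77, -6.10 and -7.17 on the EB+T+E arrays (at least 1.76-fold higher, adjusted p 0.0105). The call of Pgr was lost without EB+T+E 1 (adjusted p 0.0565). Gper1, a membrane receptor for estrogen, fell (log2 ratio -2.90 ± 0.69, adjusted p 0.00237).

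Among 25 androgen-responsive targets 6 fell and 4 rose, shares near those of all genes. The whole list's count that fell was 3 without control 1 and 3 without EB+T+E 1, and the count that rose 2 without control 2, 2 without control 3 and 2 without EB+T+E 2. Amd1, an enzyme of polyamine synthesis, was at 6.07, 5.84 and 5.85 in controls and 3.46, 3.78 and 4.67 after EB+T+E (log2 ratio -1.95 ± 0.45, adjusted p 0.00175). Aldh1a3, which makes retinoic acid, rose, at -2.25, -2.27 and -2.73 on control arrays against 0.70, 1.52 and 0.96 on EB+T+E arrays (log2 ratio 3.48 ± 0.75, adjusted p 0.00101). Steap4, a metalloreductase, rose, at -0.33, -0.82 and -0.86 on the control arrays and 2.21, 2.59 and 1.58 on the EB+T+E arrays (log2 ratio 2.79 ± 0.69, adjusted p 0.00305). Tmprss2 (1.54 ± 0.54, adjusted p 0.0282) and Pmepa1 (1.04 ± 0.38, adjusted p 0.035) rose less. The call of Tmprss2 was lost without control 2, control 3, EB+T+E 2 or EB+T+E 3 (adjusted p 0.0837 to 0.107), and that of Pmepa1 without control 2, control 3, EB+T+E 2 or EB+T+E 3 (0.0701 to 0.144). The glucocorticoid- and androgen-induced Fkbp5 was not called (log2 ratio -1.08 ± 0.58, adjusted p 0.148). Steap4 is also induced by inflammatory cytokines, and the part of the inflammation described above in these risers was not tested.

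Among 26 estrogen-responsive targets 11 rose and 2 fell, Ctsd (-0.75 ± 0.20, adjusted p 0.00683) and Pdzk1 (at least 1.46-fold lower, adjusted p 0.0115). The call of Ctsd was lost without EB+T+E 1 (adjusted p 0.0589), that of Pdzk1 without control 1 or EB+T+E 1 (0.0579 to 0.0593), and that of Greb1 without EB+T+E 2 (0.0591). Susd3, an estrogen-induced membrane protein, was at -5.50, -5.46 and -5.73 in controls and -1.98, -1.97 and -3.44 after EB+T+E (log2 ratio 3.10 ± 0.60, adjusted p 0.000356). Rasd1, a small G protein, was at -2.85, -3.61 and -3.37 on control arrays against -0.82, -0.42 and 0.32 on EB+T+E arrays (log2 ratio 2.97 ± 0.47, adjusted p 4.66e-05). Ramp2, a partner of the adrenomedullin receptor, was at -1.36, -2.45 and -2.09 on the control arrays and -0.73, -0.59 and -0.16 on the EB+T+E arrays (log2 ratio 1.47 ± 0.33, adjusted p 0.00147). All 3 lay above all controls on each EB+T+E array, as 20.6% of all genes did. Greb1, a cofactor of estrogen receptor alpha, was at -4.35, -4.31 and -4.87 in controls and -2.48, -1.72 and -2.41 after EB+T+E (log2 ratio 2.31 ± 0.71, adjusted p 0.0137). Areg (amphiregulin), a ligand of the EGF receptor, was at -7.20, -8.32 and -3.85 on control arrays against -2.49, -1.56 and -0.84 on EB+T+E arrays (log2 ratio 4.82 ± 1.18, adjusted p 0.00294). The largest ratio of the list was that of C3, which is also a complement gene. Xbp1 (-0.53 ± 0.28) and Ccnd1 (0.22 ± 0.24) were not called.

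Of 21 steroid enzymes 5 rose and 3 fell, beside 14.7% higher and 20.7% lower of all genes. Hsd11b1 and Hsd11b2, which convert glucocorticoids in opposite directions, both rose. Hsd11b1 was at -2.59, -4.35 and -3.78 on the control arrays and -0.71, -2.04 and -1.54 on the EB+T+E arrays (log2 ratio 2.14 ± 0.36, adjusted p 7.58e-05). Hsd11b2 was at -3.95, -3.31 and -4.01 in controls and 0.31, 0.60 and 1.12 after EB+T+E (log2 ratio 4.43 ± 0.83, adjusted p 0.000264). Cyp17a1, an enzyme of androgen synthesis, was at -2.56, -4.90 and -4.69 on control arrays against -0.62, -0.61 and 0.44 on EB+T+E arrays (log2 ratio 3.79 ± 1.01, adjusted p 0.00565). Cyp1b1, which hydroxylates estradiol, rose (at least 2.39-fold higher, adjusted p 0.017), as did Sts, steroid sulfatase (1.30 ± 0.35, adjusted p 0.0057). Srd5a1, a 5-alpha reductase, fell (-1.35 ± 0.47, adjusted p 0.0274), with Sult1e1, which inactivates estrogen (at least 2.23-fold lower, adjusted p 0.034). The call of Cyp1b1 was lost without control 2 or EB+T+E 2 (adjusted p 0.0579 to 0.0601), that of Srd5a1 without control 1, control 2, control 3, EB+T+E 1 or EB+T+E 2 (0.0507 to 0.168), and that of Sult1e1 without control 1, EB+T+E 1 or EB+T+E 2 (0.0604 to 0.168). The count that fell was 1 without control 1, 1 without EB+T+E 1 and 1 without EB+T+E 2.

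The prolactin receptor Prlr, at -2.25, -2.48 and -0.57 on the control arrays and -4.58, -3.11 and -0.18 on the EB+T+E arrays, was not called (log2 ratio -0.86 ± 1.20, adjusted p 0.607). Downstream of it the transcription factor Stat5a fell, at 4.64, 5.12 and 4.49 in controls and 2.32, 2.64 and 2.42 after EB+T+E (log2 ratio -2.29 ± 0.48, adjusted p 0.000734). Stat5b fell too, at -1.01, -0.72 and -1.23 on control arrays against -3.03, -2.70 and -2.98 on EB+T+E arrays (log2 ratio -1.92 ± 0.36, adjusted p 0.000242). Elf5, a mammary and prostate epithelial factor, was at 1.32, 1.52 and 1.29 on the control arrays and -2.51, -1.86 and -2.27 on the EB+T+E arrays (log2 ratio -3.59 ± 0.56, adjusted p 3.4e-05). For these 3 genes each EB+T+E array lay below all controls, which was so for 31.6% of all genes. The milk protein gene Wap also fell (at least 4.74-fold lower, adjusted p 0.0409). Socs3, a brake on cytokine receptors, rose, at -2.40, -1.42 and -2.33 in controls and 1.76, 2.17 and 1.64 after EB+T+E (log2 ratio 3.91 ± 1.01, adjusted p 0.00465), with Socs1 (1.36 ± 0.51, adjusted p 0.0405) and Tnfsf11 (at least 1.01-fold higher, adjusted p 0.0494). In all 3 of 13 members rose and 4 fell, beside 14.7% and 20.7% of all genes. The prolactin list had 1 higher and 4 lower calls under normexp. The count that rose was 1 without control 1, 1 without control 2, 1 without control 3, 1 without EB+T+E 1 and 1 without EB+T+E 2. The call of Wap was lost without control 1, control 2, control 3, EB+T+E 1 or EB+T+E 2 (adjusted p 0.0612 to 0.166), that of Socs1 without control 1, control 2, control 3, EB+T+E 1 or EB+T+E 2 (0.0585 to 0.158), and that of Tnfsf11 without control 1, control 2, control 3, EB+T+E 1 or EB+T+E 2 (0.0878 to 0.202).

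Among the hepatocyte growth factor (HGF) genes, Plat, the tissue plasminogen activator, had levels of -1.36, -1.56 and -1.62 on control arrays against 0.75, 1.16 and 0.69 on EB+T+E arrays (log2 ratio 2.37 ± 0.53, adjusted p 0.00137). Mst1r, a receptor related to MET, rose from a level not above background (at least 1.91-fold higher, adjusted p 0.0127). Plau, the urokinase, was at -3.42, -3.95 and -3.82 on the control arrays and -2.60, -1.52 and -2.71 on the EB+T+E arrays (log2 ratio 1.46 ± 0.48, adjusted p 0.0213). Hgf itself, named after its value was seen, had levels of -6.33, -7.04 and -7.49 in controls and -4.67, -5.40 and -5.69 after EB+T+E (log2 ratio 1.70 ± 0.56, adjusted p 0.0214). On the T+E arrays it was higher, at -0.52, -1.72 and -0.16, and the difference EB+T+E minus T+E was -4.45 ± 0.56 (adjusted p 1.94e-05). Met was not called (log2 ratio -0.89 ± 0.41, adjusted p 0.0897). Of 13 members 6 rose and 2 fell, and the count of risers was 3 without control 2, 2 without control 3 and 3 without EB+T+E 2. The HGF list had 3 higher and 2 lower calls under normexp, and 6 higher calls and no lower call by limma (1 at an unadjusted p under 0.05) under quantile scaling. Limma called none lower without control 1, 2 or 3 or EB+T+E 1 or 2, where 1 to 3 had an unadjusted p under 0.05. The call of Mst1r was lost without control 3 (adjusted p 0.0548), that of Plau without control 2, control 3 or EB+T+E 2 (0.0551 to 0.13), and that of Hgf without control 2, control 3 or EB+T+E 1 (0.0594 to 0.107).

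Signals of prostate development moved both ways, 7 of 38 higher and 7 lower, shares near the 14.7% and 20.7% of all genes. The count that rose was 4 without control 2 and 3 without EB+T+E 2, and the count that fell 4 without control 2 and 4 without control 3. Tgfb1, a growth inhibitor and matrix inducer, was at -5.92, -6.24 and -6.89 on control arrays against -3.12, -3.13 and -4.46 on EB+T+E arrays (log2 ratio 2.78 ± 0.54, adjusted p 0.000386). Gli2, an effector of hedgehog signalling, was at -5.49, -4.98 and -5.34 on the control arrays and -2.97, -2.75 and -3.08 on the EB+T+E arrays (log2 ratio 2.34 ± 0.47, adjusted p 0.00051). Bmp7 fell, at 0.43, -0.29 and 0.36 in controls and -1.38, -1.52 and -1.66 after EB+T+E (log2 ratio -1.68 ± 0.39, adjusted p 0.00181), with the homeobox genes Hoxd13 (-1.79 ± 0.45, adjusted p 0.00334) and Hoxb13. Fgf10, the stromal factor of duct growth, rose (1.32 ± 0.44, adjusted p 0.021), and its receptor Fgfr2 fell (-0.93 ± 0.35, adjusted p 0.0413). The call of Fgf10 was lost without control 2, EB+T+E 2 or EB+T+E 3 (adjusted p 0.0555 to 0.145), and that of Fgfr2 without any 1 of the 6 arrays (0.0566 to 0.106).

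Of the genes that write chromatin marks 4 of 19 were higher and 2 lower, beside 14.7% and 20.7% of all genes. The chromatin list had 1 lower call and no higher call by limma (1 at an unadjusted p under 0.05) under normexp. Dnmt3b, a DNA methyltransferase, was at -5.67, -5.68 and -5.73 on control arrays against -4.66, -5.04 and -4.67 on EB+T+E arrays (log2 ratio 0.90 ± 0.31, adjusted p 0.027). Dnmt3a, its relative, was at -3.09, -3.00 and -2.46 on the control arrays and -3.67, -3.49 and -3.63 on the EB+T+E arrays (log2 ratio -0.75 ± 0.22, adjusted p 0.0121). Uhrf1, which guides DNA methylation at replication, was at -9.29, -9.23 and -8.77 in controls and -8.24, -7.54 and -7.45 after EB+T+E (no fold, since its bound is under 1, adjusted p 0.0209). Ehmt2, a histone methyltransferase, was at -0.81, -0.46 and -0.87 on control arrays against -1.76, -1.37 and -1.48 on EB+T+E arrays (log2 ratio -0.82 ± 0.27, adjusted p 0.0182). The call of Dnmt3b was lost without control 1, control 2, control 3, EB+T+E 1 or EB+T+E 3 (adjusted p 0.0556 to 0.0899), that of Dnmt3a without control 3 (0.0855), that of Uhrf1 without control 1, control 2, EB+T+E 2 or EB+T+E 3 (0.0616 to 0.0718), and that of Ehmt2 without control 2 or EB+T+E 1 (0.0851 to 0.0855). The direction of Dnmt3a turned with the mean of all its probes, and that of Uhrf1 with another background correction. The count that rose was 0 without control 1, 0 without control 2, 1 without control 3, 1 without EB+T+E 1 and 2 without EB+T+E 2. Limma called none higher without control 1, where 4 had an unadjusted p under 0.05, and none without control 2, where 5 had.

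Markers of neighbouring tissues were checked beside these groups. Of 18 adipocyte genes 4 rose and 1 fell, beside 14.7% and 20.7% of all genes. The adipocyte list had 4 higher and 2 lower calls under quantile scaling. Cebpa, a factor of fat cell formation, was at -1.16, -1.73 and -1.96 on the control arrays and 0.54, 0.33 and 0.11 on the EB+T+E arrays (log2 ratio 1.94 ± 0.50, adjusted p 0.00427). Dgat2, which makes triglycerides, was at -3.10, -2.39 and -3.23 in controls and -1.39, -0.90 and -0.67 after EB+T+E (log2 ratio 1.92 ± 0.45, adjusted p 0.00222). Cfd (adipsin), a complement factor of fat cells, was at 1.21, 0.19 and -0.73 on control arrays against 3.35, 3.62 and 2.56 on EB+T+E arrays (log2 ratio 2.95 ± 0.77, adjusted p 0.00478). Cidea, a lipid droplet protein and the one that fell, was at -0.89, 0.18 and -0.25 on the control arrays and -4.04, -4.38 and -2.66 on the EB+T+E arrays (log2 ratio -3.37 ± 0.54, adjusted p 4.9e-05). Adipoq (adiponectin), a defining product of fat cells, was not called (log2 ratio 1.24 ± 1.45, adjusted p 0.528). Skeletal muscle genes had a median of 0.19 (-1.02 within slide 3 and 2.08 within slide 4), and the members of smallest p were Tnnc2 (-1.18 ± 0.85, adjusted p 0.288), Tnnt1 (1.95 ± 0.81, adjusted p 0.063), Myh7 (at least 2.87-fold lower, adjusted p 0.217) and Des (-0.90 ± 0.58, adjusted p 0.228). The skeletal muscle list had a median of -0.17 under normexp, and a median of 0.37 under quantile scaling. Of 13 genes of urothelium and epididymis Krt20 rose (at least 3.09-fold higher, adjusted p 0.0051), and Upk1a (log2 ratio -4.07 ± 0.51, adjusted p 3.87e-06) and Cst8 (at least 4.38-fold lower, adjusted p 0.0169) fell, with Upk3a not called (log2 ratio 4.25 ± 1.69, adjusted p 0.0513). The call of Cst8 was lost without control 1, control 2, EB+T+E 1 or EB+T+E 2 (adjusted p 0.0509 to 0.189). Within slide 4 the Cst8 difference was 1.36, and its fitted ratio (-4.14) was -2.18 without control 2 and -6.33 without control 3.

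Whether the difference from control is larger than either treatment alone was examined by testing EB+T+E against T+E and against EB. Against T+E 4960 of 23156 genes were called (21.4%), 2242 higher (9.68%) and 2718 lower (11.7%). Against EB 5314 were called (22.9%), 2450 higher (10.6%) and 2864 lower (12.4%). The comparisons of EB and of T+E with control share the 3 control arrays with the comparison described here, and their values are set beside it as descriptions. Leaving out single arrays moved the first count to 2738 without EB+T+E 1, 2969 without EB+T+E 2, 3141 without T+E 1 and 2338 without T+E 3, and the second to 2761 without EB+T+E 1 and 2979 without EB+T+E 2. Against T+E 28 of 35 T and NK genes, 20 of 26 B and plasma cell genes and 36 of 42 interferon genes were higher, and against EB 29, 21 and 34. For neutrophil and acute inflammation genes the counts were 17 of 30 against T+E and 24 against EB. T+E 2 was the highest T+E array for the neutrophil and acute inflammation list, with list medians of -6.00, -3.06 and -7.34 on the T+E arrays, -8.05, -6.08, -6.93 and -5.73 on the EB arrays and -2.53, -2.17 and -2.14 on the EB+T+E arrays. Macrophage genes were higher in 29 of 36 against T+E and 30 against EB.

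Single genes differed in this respect. Jchain was at -4.58, -3.49 and -3.99 on the T+E arrays and -2.78, -4.27, -3.49 and -3.80 on the EB arrays, and EB+T+E exceeded T+E by 8.02 ± 0.90 (adjusted p 3.99e-06) and EB by 7.59 ± 0.84 (adjusted p 1.8e-06). Gbp5 was at -3.14, -2.07 and -3.42 after T+E and -2.78, -1.85, -2.35 and -2.05 after EB, with EB+T+E higher than T+E by 3.51 (adjusted p 0.000159). Clca1, by contrast, was not called against T+E (log2 difference 1.60 ± 1.62, adjusted p 0.52), and neither was Gcnt3 (0.62 ± 1.45, adjusted p 0.805), whose T+E levels were -1.45, -0.06 and -2.28. Saal1 was at -0.24, 3.21 and 1.62 after T+E and -0.81, 0.56, 2.23 and -1.03 after EB, ranges that overlap its EB+T+E levels of 1.39, 2.57 and 1.63. Its difference from T+E was 0.33 ± 1.52 (adjusted p 0.903).

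Fibroblast and matrix genes were higher in 11 of 43 members against T+E and 22 against EB. Unfolded protein response genes were lower in 16 of 33 against T+E and 5 against EB, luminal genes in 5 and 4 of 26, and proliferation genes were higher in 26 of 46 against T+E and in as many against EB. Against controls, the median of the unfolded protein response list was -0.03 for T+E, -0.51 for EB and -1.18 for EB+T+E. For the T and NK list these medians were 0.59, 0.66 and 3.83, and for the interferon list 0.64, 1.10 and 3.93.

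**Figure D5:**
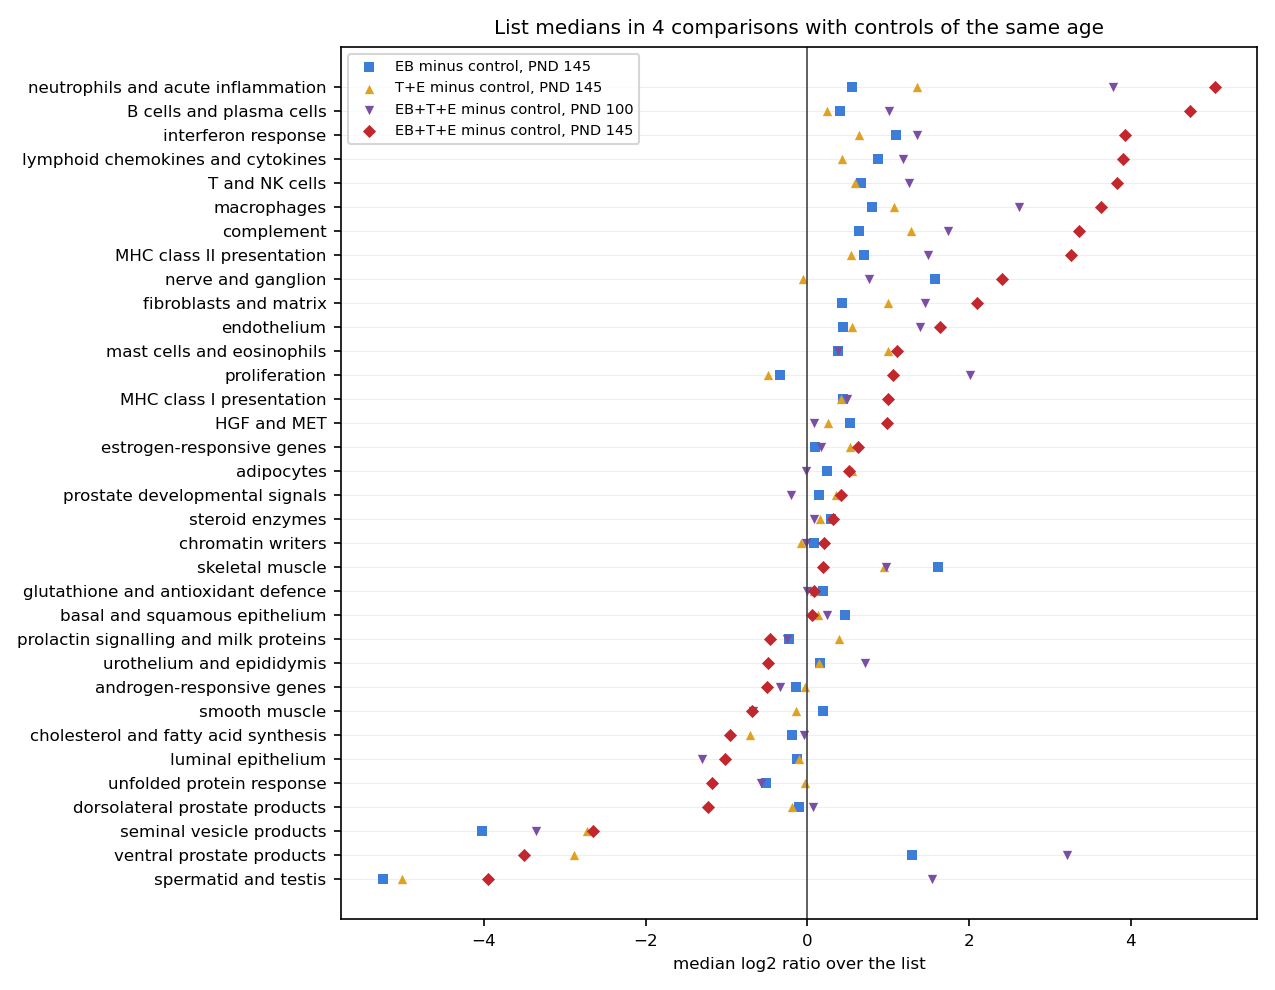
Median log2 ratio of each of the 34 gene lists (rows) in 4 comparisons with controls of the same age, 1 symbol per comparison: EB, T+E and EB+T+E at PND 145, and EB+T+E at PND 100. The 3 comparisons at PND 145 share their control arrays. For T and NK cells EB+T+E at PND 145 lies at 3.83, and for proliferation at 1.06, where EB+T+E at PND 100 lies at 2.02.

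The same treatment had been sampled at PND 100, 10 days after implantation, and the difference between the 2 ages was tested as an interaction. It was called for 67 of 23156 genes (0.289%), 57 with a higher (0.246%) and 10 with a lower (0.0432%) EB+T+E effect at PND 145. Leaving out single arrays of the 4 groups gave from 7 calls (without EB+T+E 2 of PND 145) to 281 (without EB+T+E 3 of PND 145). Of the 12 arrays, control 3 of PND 145 was the one whose omission moved the count by less than 1.5 times, to 91, of which 39 were higher and 52 lower, so the balance of directions turned. Of the genes described here 7 were called. Jchain had PND 100 levels of -5.05, -5.11 and -4.87 on control arrays and -3.67, -1.22 and -3.14 on EB+T+E arrays, a ratio of 2.33, and its effect was larger at PND 145 by 6.97 (adjusted p 0.0142). Mzb1 had a ratio of 0.13 at PND 100, and its effect was larger at PND 145 by 6.85 (adjusted p 0.0129). Prf1 was larger by 3.81 (adjusted p 0.0429), Nkg7 by 2.80 (adjusted p 0.0414) and Cd83 by 3.47 (adjusted p 0.0415). Cyp17a1 had opposite signs at the 2 ages. Its PND 100 levels were -3.70, -3.33 and -3.15 on control arrays and -7.22, -4.98 and -8.91 on EB+T+E arrays, a ratio of -3.65, against 3.79 at PND 145 (adjusted p of the difference 0.0207). Tnfrsf17, at 1.17 at PND 100, was larger by 6.38 at PND 145 (adjusted p 0.0341), with controls of PND 145 not well above background. All 7 calls were lost without EB+T+E 1 of PND 145 and without EB+T+E 2 of PND 145 (adjusted p 0.0565 to 0.144). From 3 to 6 of them were also lost without any other array of the 4 groups, apart from EB+T+E 3 of PND 145 and EB+T+E 2 of PND 100, without which all 7 held. The list medians at PND 100 were 3.78 for neutrophils and acute inflammation, 2.62 for macrophages, 1.36 for interferon response, 1.26 for T and NK cells and 1.01 for B and plasma cells. At PND 145 they were 5.05, 3.63, 3.93, 3.83 and 4.73. The difference between ages was called for 4 of 35 T and NK genes and 6 of 26 B and plasma cell genes, all larger at PND 145. It was called for 0 of 30 neutrophil, 0 of 36 macrophage and 0 of 42 interferon genes, beside 0.289% of all genes. Proliferation genes had a median of 2.02 at PND 100, with 33 of 46 called higher, beside 1250 of all 23156 genes at that age. At PND 145 their median was 1.06, and the difference between ages was called for 0 of the 46. The 3 EB+T+E arrays of PND 100 differed among themselves. The neutrophil list had median levels of -1.17, -1.61 and -5.97 on them, against -8.15, -8.16 and -5.98 in controls, so EB+T+E 3 lay level with control 3. Skeletal muscle genes had median levels of 4.37, 2.41 and -5.92, against 1.37, 1.39 and -5.10 in controls, and luminal genes -0.60, 1.90 and 1.71, against 2.00, 1.73 and 2.16. Without EB+T+E 3 of PND 100 the list medians of that age were 4.90 for neutrophils, 2.94 for macrophages, 1.61 for interferon response, 1.64 for T and NK cells, 0.91 for B and plasma cells and 1.92 for proliferation, and 44 genes, 27 higher and 17 lower, were called for the difference between ages.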

How the data were processed

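Gene expression was measured on 33 single-colour Agilent rat arrays. The deposited scanner files hold linear intensities, background-subtracted and detrended within the array by Agilent Feature Extraction 12.0.0.7 (protocol GE1_1200_Jun14, array design 074036, grid build rn4), per the file headers. The authors' deposited value table also holds linear intensities, whose arrays share nearly the same 75th percentile by their values. The steps behind it are not stated. Raw signals and flags were used as deposited.

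Each array's log2 processed signal was set against its 75th percentile, and control and outlier spots were left out. Probes well above background on at least 3 arrays were kept (30543 of 45598), and the brightest probe stood for a gene. Accessions and symbols were updated through RefSeq, and 15606 of 23156 genes have a symbol. A model of 10 group means over all 33 arrays was fitted in limma 3.58.1 (R 4.3.3; trend, robust), with Benjamini-Hochberg adjustment at 0.05. This step was first tested on simulated data, in which 200 genes were changed. Lists were described by counts and medians, with no test of the list. Of the 34 lists, 836 of 903 genes were tested. Promoters (GRCr8) were searched over the 250 bases before the start site.

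Named were the 12 highest and 12 lowest ratios among called genes with a symbol, no overlap and at least 2 arrays of each group well above background, and the 4 largest bounds each way. Also named were up to 4 members of each list with the smallest p, all measured ventral and dorsolateral products, and the receptors Esr1, Esr2, Pgr and Prlr. The rule gave 170 genes, some of which are not reported here, and 87 outside it were chosen after their values were seen. Members and lists were chosen with earlier results of these data known. Alternatives covered background correction (normexp, offset 50), scaling, the filter, probe choice, slide, replicate number, samples in the fit, array weights, the authors' table and each array left out. Leaving out EB+T+E 3 and control 2 together was added after the data were seen.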

Additional observations from a re-analysis of the deposited data

Results flagged for a closer look

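The EB+T+E effect differed between PND 145 and PND 100 in limma's interaction term, at an adjusted p under 0.05, for 67 genes. Of these, 7 are described above. The effect was larger at PND 145 by 6.97 (log2) for Jchain and by 6.85 for Mzb1, which act in antibody-secreting cells, and by 6.38 for Tnfrsf17, a receptor of plasma cells that was not well above background in controls of PND 145. It was larger by 2.80 for Nkg7 and by 3.81 for Prf1, of cytotoxic lymphocytes, by 3.47 for Cd83, of activated dendritic cells and B cells, and by 7.43 for Cyp17a1, an enzyme of androgen synthesis. Each of the 7 gene differences lost its call without EB+T+E 1 or without EB+T+E 2 of PND 145, with adjusted p from 0.0565 to 0.144.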

How the results depend on the processing

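The count of EB+T+E against control, 8199, lay between 6615 and 8302 under the alternatives run, apart from array weights (12527) and single arrays left out (5173 to 8489). Array weights gave 11814 genes against T+E, 11693 against EB and 1530 for the difference between ages (792 higher and 738 lower). Single arrays left out gave 2338 to 5692, 2761 to 6013 and 7 to 281. With only the groups compared in the fit, 3542 genes were called against EB. The 67 genes of the difference between ages became 132 under quantile scaling, 2 with a filter of 17 arrays, 32 with slide as a block and 44 with the replicate block. The replicate block otherwise called 7956, 4674 and 4477 genes. Deviations of same-numbered control and EB+T+E arrays correlated at 0.0766, 0.0849 and 0.178, not all over 0.1, so the numbers were not taken as pairs, although each EB+T+E array correlated best with the control of its own number and numbers 2 and 3 also share a slide. Of 215 called genes among those the rule gave or that were added, 15 lost the call under quantile scaling, among them Gpx4, Krt15, Msmb, Myl9, Pbsn, Scgb1d4, Semg1, Svs4, Uhrf1, Ctsd, Fgfr2, Hoxb13, Krt18, Socs1 and Wap. Under normexp 22 lost it, among them Aplnr, Dnmt3a, Dnmt3b, Klk1c10, Mst1r, Pgr, Snap25, Stmn2, Hgf, Krt18, Lta, Mcpt1, Pln, Pmepa1, Socs1, Tnfsf11 and Wap, and the fitted value of Uhrf1 turned sign (-0.14). The log2 ratios of other genes turned sign as follows. Acp3 was at -0.17 under normexp, -0.03 under quantile scaling, -0.02 with slide as a block, -0.14 with array weights and -0.17 without both EB+T+E 3 and control 2. Krt8 was at 0.02 under normexp, B2m at 0.31 under quantile scaling, and Krt14 at 0.01 with array weights. With all probes of a gene averaged, Dnmt3a was at 0.28, Ccnd1 at -0.02 and Eif2ak3 at 0.05. Cst8 was at 1.36 within slide 4. With single arrays left out, Acp3 ranged from -0.07 to 0.35, Cyss from -1.90 to 0.38, Prlr from -2.08 to 0.12, Wfdc10a from -0.75 to 0.02 and C5 from -2.21 to 0.01. Ifih1 ranged from -0.35 to 1.53, Il6 from -2.04 to 0.06, Krt14 from -0.50 to 0.10, Krt8 from -0.78 to 0.25 and Saal1, against T+E, from -0.55 to 1.17. The cause of these changes was not tested. Genes not well above background in a group have only a bound. For Uhrf1 and Il6 that bound is under 1, and their fitted values above show a sign only.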
